A study of Macaca fascicularis with 28 samples.

Results

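Gene expression of whole circumvallate (CV) taste buds was set against that of the lingual epithelium (LE) next to the CV papillae of the same animals. CV papillae lie at the back of the tongue, and their taste buds line the walls of the clefts. The 4 samples labelled as whole CV taste buds and the 4 samples labelled as LE around CV papillae were taken, 8 of the 28 samples of the series. They came from 4 normal, untreated cynomolgus macaques (Macaca fascicularis), each of which gave 1 sample of either tissue: animal 1, a female of 4 years, animal 3, a male of 3.8 years, animal 4, a male of 2.6 years, and animal 5, a female of 3 years. Each sample was cut out by laser capture microdissection, a method that lifts chosen areas from a stained section, and its RNA was amplified and hybridized to an Affymetrix Rhesus Macaque Genome Array, which was designed for a related macaque. The other 20 samples were fungiform (FG) taste buds and the LE around them, 12 samples from 6 animals that include these 4, and 8 samples of CV taste buds split into a top and a bottom fraction, from other animals and on a separate set of arrays.

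Taste buds are clusters of epithelial receptor cells with neuronal properties. Type II cells bear the sweet, umami or bitter receptors and signal through a G protein, phospholipase C and the channel TRPM5, type III cells respond to sour and make synapses with nerve fibres, and type I cells have supporting roles. All are replaced throughout life from the epithelium around them, under Sonic hedgehog and Wnt signals. The surrounding LE is a stratified epithelium that builds keratins, a cornified envelope and a barrier against the oral cavity. In material of this kind, fewer cells of a type and less RNA per cell cannot be told apart.

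Every value below is an intensity in arbitrary units after normalization by the authors, and the 4 values of a group are given in the order of animals 1, 3, 4 and 5. A probe set, the group of probes that reads 1 transcript, was tested if it reached 25 units in at least 4 of the 8 samples. Log2 changes (± standard error) and Benjamini-Hochberg adjusted p-values come from limma fitted to log2 values with the animal as a block, and single genes passed at an adjusted p of at most 0.05. A gene given with a log2 change alone in parentheses passed. Where a named call was lost with a single animal left out or under another alternative, the adjusted p in parentheses is the range over all limma alternatives. Calls lost with animals 1 and 3 alone are given only as a count. Values of a few units are background, so a fold change compares geometric means with every value under 25 raised to 25. In list medians, "low values raised" means the same. "At least" stands before a fold where the dimmer tissue had raised values, and where the brighter tissue had them no fold is given. The number of animals limits the precision of every value. The array medians were 13.57 to 15.23 units in CV taste buds and 14.12 to 15.63 in LE, and 37.3% to 38.6% and 37.5% to 38.3% of probe sets reached 25 units. Correlations of log2 values between arrays were 0.821 to 0.872 within CV taste buds, 0.818 to 0.917 within LE and 0.447 to 0.597 between them, so the tissue separated the arrays more than the animal did.

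The markers of both tissues followed the labels, with exceptions. TAS2R14, TAS2R42, GNAT3, PLCB2, TRPM5, PKD2L1 and SNAP25 were higher in CV taste buds, and KRT4, KRT13, IVL, CRNN, TGM3 and DSG3 were higher in LE. KRT8, a keratin of taste cells, had 45.4, 33.1, 53.7 and 27.3 in CV taste buds and 40.4, 32.3, 46.9 and 38.4 in LE (log2 change -0.02 ± 0.29, adjusted p = 0.958). NCAM1, an adhesion molecule of type III cells and nerve fibres, had 1127, 302, 608 and 730.1 in CV taste buds and 1107, 1155, 933 and 1289 in LE (log2 change -0.84 ± 0.40, adjusted p = 0.151). Neither passed, and the values of both overlapped between the tissues. KRT5 and KRT14 of the basal layer were not named among the probe sets used here.

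CV taste buds and LE differed in a large part of the array. Of 20645 probe sets tested, 2133 (10.3%) were higher in CV taste buds and 1888 (9.15%) were lower when both an adjusted p of 0.05 or less and 5-fold were required. By the adjusted p alone, 3786 (18.3%) were higher and 3855 (18.7%) lower, and 9953 had an unadjusted p under 0.05. The 4 CV values and the 4 LE values did not overlap in 8144 probe sets (39.4%). Among genes with a symbol, each read by its brightest probe set, 2304 of 8959 (25.7%) were higher and 1439 (16.1%) lower by the adjusted p, with a median log2 change of 0.22 (0.21 with values under 25 raised to 25). The median over all tested probe sets was -0.05. Of the probe sets tested, 786 reached 25 units in every CV sample and in no LE sample, and 681 of these are among the 2133. A further 618 reached it in every LE sample and in no CV sample, and 388 of these are among the 1888. Such probe sets entered the test only through the tissue in which they were bright. The medians of the tested values were 0.18 log2 units higher in CV taste buds than in LE. With each array centred on its median, 1899 probe sets were higher and 2179 lower, so the share of higher calls was 46.6% with centring and 53% as reported. Among the 2133 higher probe sets the smallest of the 4 changes was that of animal 3 in 36.3%, and among the 1888 lower ones that of animal 4 in 31.2%.

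**Figure D1:**
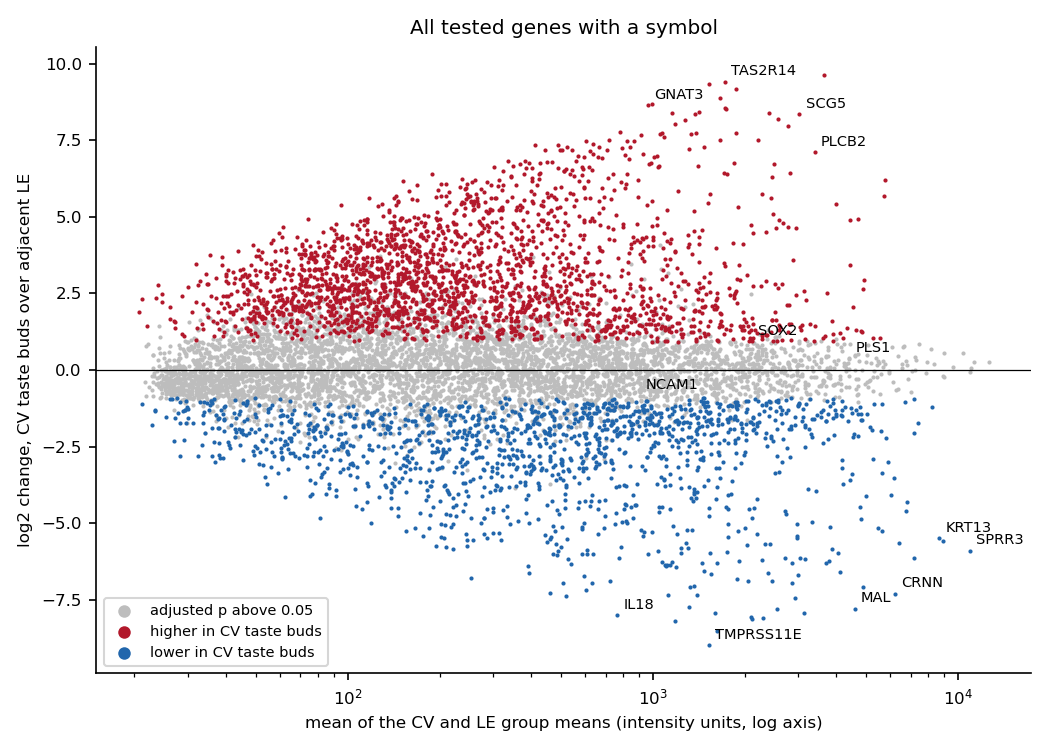
Log2 change of each tested gene with a symbol (CV taste buds over adjacent LE, vertical axis) against the mean of the group means in intensity units (horizontal log axis), 8 samples of 4 animals. Red points were higher and blue points lower in CV taste buds by the adjusted p, grey points did not pass, and the fitted log2 changes, in which values under 25 units are not raised, ran from -8.97 (TMPRSS11E) to 9.61 (CXCL14).

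The largest fitted log2 changes were in genes at or near background in one tissue and bright in the other. Their order follows the fit, and since values of a few units carry no order it differs from that of the folds. CXCL14 (TPM2 in the array annotation), a chemokine of epithelia, measured 6087, 7130, 7515 and 8256 in CV taste buds, against 11.6, 23.01, 4.88 and 5.46 in LE (at least 288-fold higher, log2 change 9.61 ± 0.49, adjusted p = 0.000384). PDE1C (NIF3L1 in the array annotation), a phosphodiesterase that breaks down cyclic nucleotides under control of calmodulin, measured 2757, 3876, 2914 and 2694 in CV taste buds, against 4.67, 4.28, 4.47 and 5.55 in LE (at least 121-fold higher, log2 change 9.32 ± 0.30, adjusted p = 0.000335). All LE values of both genes lay below 25 units, and every CV value lay at 2694 or more. MMP7, a secreted metalloproteinase of glandular epithelia, measured 2795, 2981, 2315 and 2910 in CV taste buds, against 15.9, 8.59, 5.35 and 6.78 in LE (at least 109.5-fold higher, log2 change 8.35 ± 0.35, adjusted p = 0.000335). Further genes among the 15 largest upward changes were the bitter receptor TAS2R14 and the G protein GNAT3 (both described below), PLCD4, a phospholipase C of the delta class (8.38), SLC35F1, a membrane protein of a nucleotide sugar transporter family (9.16), MCTP1, a calcium-binding membrane protein (8.68), the growth factors TGFB2 and IGF1 (both described below), ABCC5, an exporter of cyclic nucleotides and organic anions (8.42), THBS2, a matrix glycoprotein (8.40), and SCG5 and GFRA3, which are described with the neuroendocrine genes.

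On the other side, genes of the differentiated LE were low in CV taste buds, many of them under 25 units. TMPRSS11E, a membrane serine protease of stratified epithelia, measured 5.68, 6.70, 4.62 and 7.07 in CV taste buds, against 3219, 2945, 2041 and 4012 in LE (at least 119-fold lower, log2 change -8.97 ± 0.28, adjusted p = 0.000335). For ARG1, arginase 1, the values were 12.9, 9.44, 4.38 and 10.6 in CV taste buds and 2986, 2735, 4448 and 2809 in LE (at least 127-fold lower, log2 change -8.52 ± 0.45, adjusted p = 0.000401). All CV values of both genes lay under 25 units. MAL, a lipid raft protein of stratified squamous epithelia, measured 140.3, 17.8, 22.4 and 51.99 in CV taste buds, against 9868, 8772, 8793 and 9076 in LE (at least 197-fold lower, log2 change -7.79 ± 0.53, adjusted p = 0.000695). Animal 1 had the highest CV value of MAL. GSG1, known from germ cells (-8.08), MUC20, a membrane mucin (-7.73), SLC24A3, a sodium, potassium and calcium exchanger (-8.19), LYPD2, a member of the Ly6 family (-7.80), POPDC3, a membrane protein known from striated muscle (-7.36), the chemokine CXCL17, the interleukins IL18 and IL1F6, the kallikrein KLK6 and the protease PRSS27, and the inhibitors SPINK7 and SERPINB2 made up the rest of the 15 largest downward changes.

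Of the bitter receptors, the TAS2R family of G protein-coupled receptors in type II cells, 21 genes were named on the array. Of these, 9 reached the minimum, all 9 were higher in CV taste buds, with a median log2 change of 4.69 (2.85 with values under 25 raised to 25), and each of the 9 was at 25 units or more in every CV sample and in no LE sample, so none could enter the test without a difference. TAS2R14 measured 3286, 3220, 3015 and 4221 in CV taste buds, against 6.56, 4.35, 4.80 and 4.64 in LE (at least 136-fold higher, log2 change 9.41 ± 0.30, adjusted p = 0.000335). TAS2R42 measured 828, 1033, 704 and 702 in CV taste buds, against 5.59, 5.50, 3.99 and 4.92 in LE (at least 32.2-fold higher, log2 change 7.35 ± 0.27, adjusted p = 0.000335). For TAS2R4 the values were 268, 422, 289.9 and 164 in CV taste buds and 7.68, 5.92, 6.80 and 4.46 in LE (at least 10.8-fold higher, log2 change 5.47 ± 0.32, adjusted p = 0.000451). LE values of the 3 receptors stayed under 8 units. TAS2R10 had 217, 397, 366 and 391 in CV taste buds, while LE had 14.9, 13.2, 12.7 and 11.2 (at least 13.3-fold higher, log2 change 4.69 ± 0.33, adjusted p = 0.000763). TAS2R8 measured 387, 189.8, 70.1 and 205 in CV taste buds, against 7.75, 6.89, 5.28 and 5.19 in LE (at least 7.21-fold higher, log2 change 4.87 ± 0.40, adjusted p = 0.00111). For TAS2R48 the values were 196, 108, 158 and 216 in CV taste buds and 10.6, 4.87, 10.4 and 3.61 in LE (at least 6.55-fold higher, log2 change 4.63 ± 0.42, adjusted p = 0.0014). Animal 1 had the lowest CV value of TAS2R10 and animal 4 that of TAS2R8. TAS2R13 measured 67.5, 75.1, 182 and 398 in CV taste buds, against 11.97, 6.62, 5.52 and 5.59 in LE (at least 5.54-fold higher, log2 change 4.30 ± 0.65, adjusted p = 0.00565). TAS2R43 had 43.1, 98.99, 162 and 66.1 in CV taste buds, while LE had 6.34, 5.35, 3.78 and 4.38 (at least 3.29-fold higher, log2 change 4.08 ± 0.48, adjusted p = 0.00277). For TAS2R50 the values were 393, 134, 47.9 and 182 in CV taste buds and 13.1, 12.9, 7.19 and 8.79 in LE (at least 5.86-fold higher, log2 change 3.85 ± 0.44, adjusted p = 0.00265). CV values of these 3 receptors varied more between animals than those of TAS2R14, and their CV and LE values did not overlap. The other 12 receptors were not tested, because they reached 25 units in fewer than 4 samples.

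Some of the untested bitter receptors stood above 25 units in CV taste buds of some animals. TAS2R7 had 21.5, 248, 15.7 and 18.7 in CV taste buds and 7.20, 7.06, 9.88 and 9.71 in LE, with only animal 3 above the minimum. TAS2R16 had 11.96, 41.2, 108 and 27.9 in CV taste buds and 12.1, 7.79, 8.31 and 8.01 in LE, with animals 3, 4 and 5 above it. TAS2R39 had 24.1, 18.9, 32.9 and 132 in CV taste buds and 8.76, 6.05, 10.6 and 9.48 in LE, and here animals 4 and 5 were above it. Of TAS2R49, animal 5 alone had over 25 units in CV taste buds, and of TAS2R60 animal 4 alone. The remaining TAS2R1, TAS2R3, TAS2R5, TAS2R9, TAS2R38, TAS2R40 and TAS2R41 had means between 3.77 and 13.8 units in both tissues. Of the sweet and umami receptors, TAS1R1, the specific subunit of the umami receptor, had 18.4, 71.5, 76.6 and 97.8 in CV taste buds and 38.8, 19.1, 30.3 and 20.6 in LE (log2 change 1.10 ± 0.61, adjusted p = 0.201), the CV value of animal 1 being under all LE values. TAS1R2, the specific subunit of the sweet receptor, was not tested and had 11.9, 29.8, 21.6 and 14.8 in CV taste buds and 17.9, 9.27, 11.2 and 8.42 in LE. TAS1R3, the subunit both share, was not named among the probe sets used here.

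The signalling chain behind the receptors was higher in CV taste buds at nearly every step measured. Of 14 type II cell genes named on the array, 13 were tested, 12 were higher and 0 lower, with a median log2 change of 4.20 (3.26 with low values raised), and 7 entered the test through CV taste buds alone. GNAT3, gustducin, the alpha subunit of the taste G protein, measured 1578, 2299, 1946 and 1849 in CV taste buds, against 4.83, 4.75, 5.32 and 4.12 in LE (at least 76.02-fold higher, log2 change 8.65 ± 0.28, adjusted p = 0.000335). For GNG13, the gamma subunit that pairs with gustducin, the values were 3850, 5180, 5133 and 3399 in CV taste buds and 22.2, 31.4, 31.8 and 15.2 in LE (at least 154-fold higher, log2 change 7.49 ± 0.28, adjusted p = 0.000335). PLCB2, the phospholipase C that gustducin signalling activates, measured 6519, 7161, 7085 and 6132 in CV taste buds, against 22.1, 56.5, 83.5 and 54.9 in LE (at least 133-fold higher, log2 change 7.10 ± 0.39, adjusted p = 0.000427). The values within each tissue lay close together for all 3, except for a lower PLCB2 in LE of animal 1. TRPM5, the cation channel opened by the calcium that this cascade releases, had 259, 697, 374 and 207 in CV taste buds, while LE had 51.3, 27.6, 28.3 and 41.1 (9.59-fold higher, log2 change 3.26 ± 0.49, adjusted p = 0.00569). ITPR3, the inositol trisphosphate receptor that releases that calcium, measured 52.1, 66.6, 122 and 176 in CV taste buds, against 33.9, 29.6, 30.9 and 35.2 in LE (2.88-fold higher, log2 change 1.52 ± 0.39, adjusted p = 0.0285). For ITPR3, animals 4 and 5 had the higher CV values and the groups did not overlap. For CALHM3, a subunit of the channel that lets ATP out as the transmitter of type II cells, the values were 1771, 1853, 2794 and 1821 in CV taste buds and 21.8, 19.2, 19.6 and 22.4 in LE (at least 80.9-fold higher, log2 change 6.61 ± 0.30, adjusted p = 0.000335). CALHM3 was highest in animal 4. Of the other passing members, log2 changes were 7.33 and 4.20 for the sodium channels SCN3A and SCN9A, 3.16 for CALHM1, the partner subunit of CALHM3, 2.96 for the G protein GNA14 and 2.07 for the potassium channel KCNQ1. TRPM4, a calcium-activated cation channel of type II cells in mice, did not pass (log2 change -0.24 ± 0.31, adjusted p = 0.569), and its values overlapped. ITPR3 did not pass without animal 3, 4 or 5 (adjusted p 0.0102 to 0.417). CALHM1 did not pass without animal 1 and with values under 25 raised to 25 (adjusted p 0.00164 to 0.0939).

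**Figure D2:**
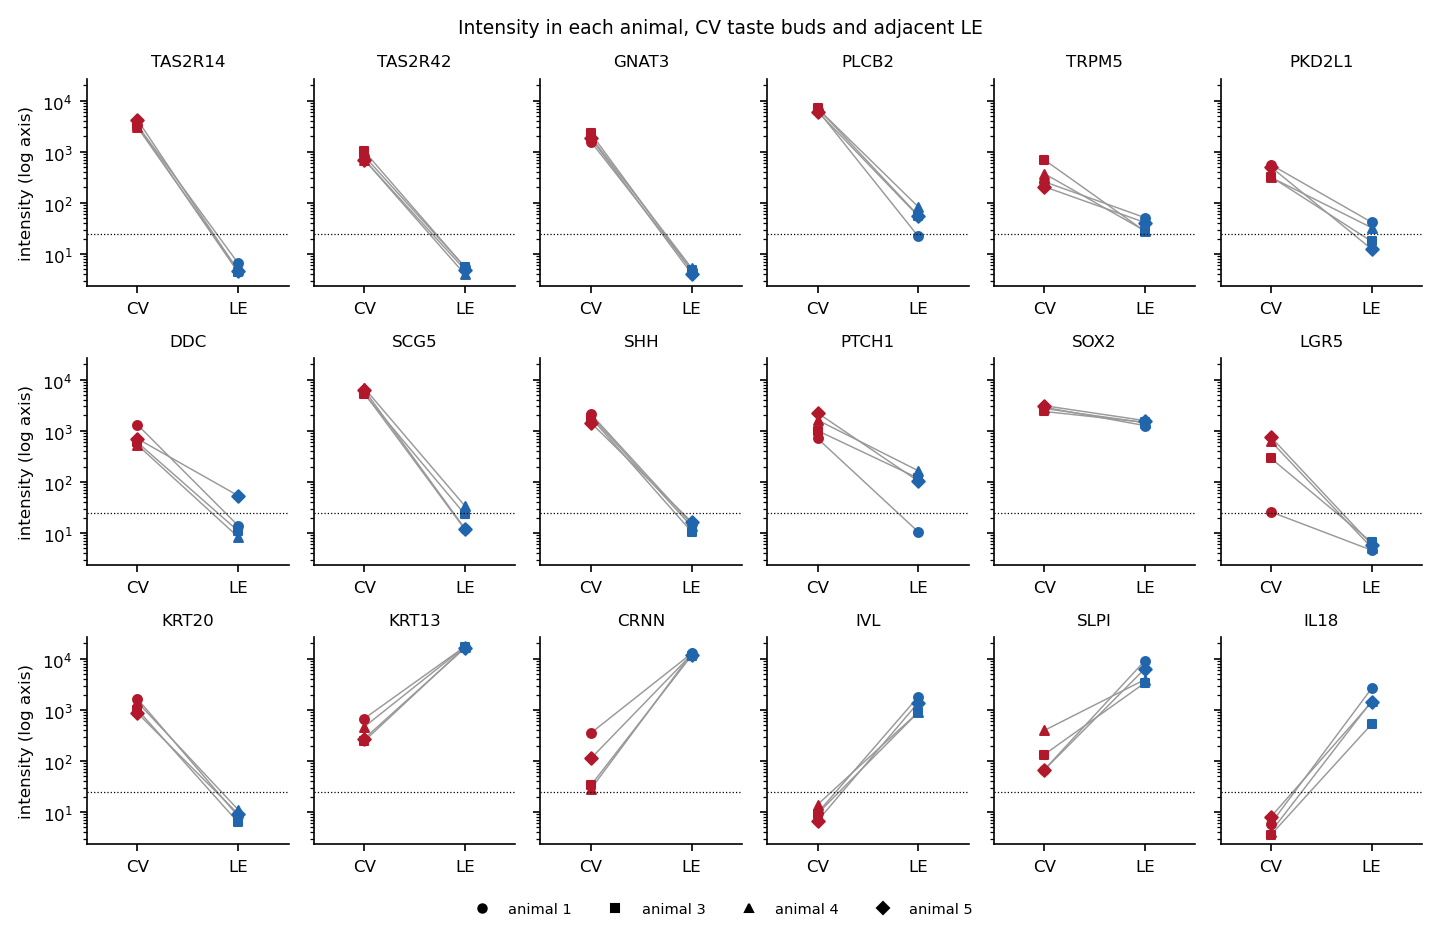
Intensity (log axis) of 18 genes in CV taste buds (left of each panel) and adjacent LE (right), with a line joining the samples of 1 animal and the dotted line at 25 units. The taste, neuroendocrine and progenitor genes were higher in CV taste buds in all 4 animals, KRT13, CRNN, IVL, SLPI and IL18 ran the other way, and LGR5 in animal 1 had 25.9 units in CV taste buds.

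Genes of type III cells, the sour-responsive cells with synapses, were mostly higher. Of 12 type III cell genes named on the array, 8 were tested, 6 were higher and 1 lower, with a median log2 change of 4.14 (3.35 with low values raised), and 2 entered the test through CV taste buds alone. PKD2L1, a channel subunit that marks sour-responsive cells, measured 558, 324, 315 and 504 in CV taste buds, against 41.6, 17.5, 32.6 and 12.4 in LE (at least 13.6-fold higher, log2 change 4.14 ± 0.42, adjusted p = 0.00186). For DDC (BMP2K in the array annotation), aromatic L-amino acid decarboxylase, the last step of serotonin synthesis, the values were 1316, 594, 529 and 701 in CV taste buds and 13.9, 10.97, 8.37 and 53.8 in LE (at least 24.2-fold higher, log2 change 5.50 ± 0.52, adjusted p = 0.00161). SNAP25 (DPYSL3 in the array annotation), a protein of the vesicle fusion complex, had 257, 282, 126 and 132 in CV taste buds, while LE had 8.37, 5.89, 6.48 and 6.97 (at least 7.46-fold higher, log2 change 4.76 ± 0.35, adjusted p = 0.000832). LE of animal 5 had the highest DDC value of its tissue, and the groups of these 3 genes did not overlap. CACNA1A, the pore of P/Q-type calcium channels (5.61), CHRNA10, a nicotinic receptor subunit (4.13) and ENTPD3, an ATP-degrading ectoenzyme of type III cells (2.93) were also higher. In contrast, SLC18A2, a vesicular monoamine transporter, had 27.3, 17.2, 11.9 and 22.03 in CV taste buds and 35.5, 70.2, 70.04 and 61.1 in LE (log2 change -1.61 ± 0.43, adjusted p = 0.0335), lower in all 4 animals. TPH1, which makes the serotonin precursor, was not tested and had 8.07, 106, 10.1 and 21.8 in CV taste buds and 16.9, 14.2, 9.78 and 7.97 in LE. SLC18A2 did not pass without animal 3, 4 or 5, with no minimum and in the fit of 20 samples (adjusted p 0.00849 to 0.354).

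Genes listed for type I cells moved both ways. Of 8 type I cell genes named on the array, 5 were tested, 1 was higher and 3 lower, with a median log2 change of -1.10 (-1.10 with low values raised). SLC1A3, the glutamate uptake transporter GLAST, measured 464, 547, 1307 and 637 in CV taste buds, against 24.4, 47.7, 12.5 and 112 in LE (at least 15.8-fold higher, log2 change 4.24 ± 0.70, adjusted p = 0.00768). The epithelial sodium channel, which serves salt taste in mice, has the subunits SCNN1A, SCNN1B and SCNN1G. All 3 were lower in CV taste buds and set the list median. Apart from them only SLC1A3 and ENTPD2 were tested. For SCNN1A the values were 1590, 1913, 2564 and 2125 in CV taste buds and 4090, 4343, 4633 and 4204 in LE (2.14-fold lower, log2 change -1.10 ± 0.28, adjusted p = 0.0286). SCNN1B had 43.5, 64.7, 70.6 and 79.7 in CV taste buds, while LE had 732, 372, 395 and 398 (7.21-fold lower, log2 change -2.85 ± 0.40, adjusted p = 0.00458). SCNN1G measured 27.4, 29.2, 43.8 and 14.3 in CV taste buds, against 128, 173, 312 and 299 in LE (at least 6.97-fold lower, log2 change -3.00 ± 0.44, adjusted p = 0.00517). LE of animal 1 had a SCNN1B value well above the other LE values. ENTPD2, an ectoenzyme of type I cells in mice, did not pass (log2 change -0.37 ± 0.27, adjusted p = 0.321). SCNN1A did not pass whichever 1 animal was left out (adjusted p 0.00418 to 0.262).

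Genes shared with tuft cells, chemosensory cells of the gut and airways that use the same cascade, were higher in CV taste buds. Of 15 tuft cell genes named on the array, 11 were tested, 10 were higher and 0 lower, with a median log2 change of 3.96 (3.26 with low values raised), and 5 entered the test through CV taste buds alone. AVIL, the actin-binding protein advillin, measured 2043, 2805, 2597 and 2745 in CV taste buds, against 7.39, 7.56, 7.69 and 13.8 in LE (at least 101-fold higher, log2 change 8.17 ± 0.30, adjusted p = 0.000335). For DCLK1, a microtubule-associated kinase, the values were 2004, 654, 562 and 2089 in CV taste buds and 5.38, 10.8, 4.72 and 9.49 in LE (at least 44.5-fold higher, log2 change 7.28 ± 0.49, adjusted p = 0.000679). POU2F3, the transcription factor on which tuft cells and type II cells depend in mice, measured 208, 1484, 1043 and 1296 in CV taste buds, against 29.7, 24.8, 31.5 and 12.2 in LE (at least 29.1-fold higher, log2 change 5.12 ± 0.67, adjusted p = 0.00378). The lowest CV value of POU2F3 was that of animal 1. PTGS1, cyclooxygenase 1 (3.96), BMX, a tyrosine kinase (6.96), SH2D6 (EFL1 in the array annotation), an adaptor protein (6.38), PTPN6, a tyrosine phosphatase (2.81) and LTC4S, the leukotriene C4 synthase (2.26) passed as well. IL25, the cytokine through which tuft cells act on immune cells in mice (1.40) passed with the smallest of these changes. IL25 did not pass without animal 3, 4 or 5 (adjusted p 0.0156 to 0.262). LTC4S did not pass without animal 3, 4 or 5 and with no minimum (adjusted p 0.0017 to 0.274).

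Genes that build apical microvilli moved in both directions. Of 20 genes of sensory microvilli named on the array, 11 were tested, 4 were higher and 3 lower, with a median log2 change of -0.32 (-0.24 with low values raised), and 2 entered the test through CV taste buds alone. ESPN, espin, which bundles actin in hair cells and microvilli, measured 1612, 2150, 1670 and 1462 in CV taste buds, against 9.96, 10.3, 11.2 and 7.32 in LE (at least 68.2-fold higher, log2 change 7.48 ± 0.28, adjusted p = 0.000335). For CDHR2, a protocadherin that links microvilli, the values were 487, 1277, 576 and 556 in CV taste buds and 91.7, 33.3, 59.9 and 47.3 in LE (12.3-fold higher, log2 change 3.62 ± 0.51, adjusted p = 0.00462). EPS8, an actin capping protein (2.31) was also higher. CDHR2 was highest in CV taste buds of animal 3, and neither gene overlapped between the tissues. The myosin MYO6 had 1539, 2373, 1858 and 1698 in CV taste buds and 3882, 4678, 3435 and 4464 in LE (log2 change -1.15 ± 0.28, adjusted p = 0.0258). The cadherin CDH23 of hair cell links had 801, 231, 241 and 218 in CV taste buds and 1303, 624, 546 and 517 in LE (log2 change -1.14 ± 0.29, adjusted p = 0.0285). VIL1, villin, had 9.17, 6.43, 146 and 15.3 in CV taste buds and 306, 127, 129 and 539.6 in LE (log2 change -3.58 ± 0.96, adjusted p = 0.0334), where animal 4 had more in CV taste buds than in LE and the 3 other animals less. PLS1, the actin bundler plastin 1, was bright in both tissues with overlapping values (log2 change 0.39 ± 0.31, adjusted p = 0.353). MYO6 did not pass whichever 1 animal was left out (adjusted p 0.00406 to 0.302). CDH23 did not pass without animal 3, 4 or 5 and without the animal block (adjusted p 0.0169 to 0.348). VIL1 did not pass without animal 1, 3 or 5 and with no minimum (adjusted p 0.0033 to 0.118).

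Components of regulated secretion were higher in CV taste buds. Of 24 genes of vesicle release named on the array, 15 were tested, 12 were higher and 1 lower, with a median log2 change of 3.56 (2.34 with low values raised), and 8 entered the test through CV taste buds alone. SYT1, synaptotagmin 1, the calcium sensor of fast release, measured 2040, 1496, 855 and 2151 in CV taste buds, against 12.6, 8.76, 7.16 and 7.23 in LE (at least 61.6-fold higher, log2 change 7.47 ± 0.33, adjusted p = 0.000335). CADPS2, a priming factor of dense-core vesicles, had 4082, 4485, 5558 and 5635 in CV taste buds, while LE had 7.90, 128, 51.1 and 89.3 (at least 79.2-fold higher, log2 change 6.72 ± 0.66, adjusted p = 0.00174). CADPS2 was at background in LE of animal 1 and the other 3 LE samples were above it. RIMS2, a scaffold of the release site (6.79), UNC13B, a priming factor of synaptic vesicles (4.10), RAB3B, a vesicle GTPase (4.03), SYT13, a synaptotagmin (4.18) and SYN2, a synapsin (3.56) were further passing members. VAMP2, the vesicle SNARE synaptobrevin 2, was lower, with 431, 124, 167 and 123 in CV taste buds and 703, 401, 476 and 506 in LE (log2 change -1.49 ± 0.34, adjusted p = 0.0201), and its CV value in animal 1 lay within the LE values. The brightest probe set was used for VAMP2, and of its 2 tested probe sets 1 was higher and 1 lower. VAMP2 did not pass without animal 3, 4 or 5 (adjusted p 0.0129 to 0.312).

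Granins, proteins that help form hormone granules, and the enzymes that cut and amidate prohormones were higher in part. Of 11 such genes named on the array, 8 were tested, 5 were higher and 0 lower, with a median log2 change of 3.89 (3.10 with low values raised), and 1 entered the test through CV taste buds alone. SCG5, the chaperone 7B2 of prohormone convertase 2, measured 5533, 5278, 6945 and 6364 in CV taste buds, against 11.9, 23.2, 33.98 and 12.2 in LE (at least 222-fold higher, log2 change 8.35 ± 0.37, adjusted p = 0.000335). For CPE, carboxypeptidase E, which trims peptide hormones, the values were 5963, 4385, 5620 and 6003 in CV taste buds and 164, 7.16, 7.40 and 25.5 in LE (at least 136-fold higher, log2 change 7.97 ± 0.77, adjusted p = 0.00167). CHGB, chromogranin B, measured 523, 79.9, 144 and 275 in CV taste buds, against 3.95, 7.10, 6.93 and 40.4 in LE (at least 7.16-fold higher, log2 change 4.42 ± 0.73, adjusted p = 0.0076). The highest LE value of CPE was that of animal 1, and that of CHGB was in animal 5. SCG3, secretogranin III (6.63) and PAM, the peptide-amidating enzyme (3.36) were higher too. CHGA (TFPI2 in the array annotation), chromogranin A, had 27.8, 262, 116 and 77.2 in CV taste buds and 64.1, 26.6, 68.6 and 45.3 in LE and did not pass (log2 change 0.91 ± 0.72, adjusted p = 0.358).

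Several hormones and hormone receptors were above background in CV taste buds. Of 19 hormone genes named on the array, 12 were tested, 9 were higher and 0 lower, with a median log2 change of 3.17 (2.63 with low values raised), and 2 entered the test through CV taste buds alone. STC1, the secreted glycoprotein stanniocalcin 1, measured 310.2, 423, 306 and 466 in CV taste buds, against 6.06, 36.6, 6.06 and 18.5 in LE (at least 13.4-fold higher, log2 change 4.88 ± 0.46, adjusted p = 0.00154). GHRHR, the receptor of growth hormone releasing hormone, had 119.7, 419, 419 and 337 in CV taste buds, while LE had 15.8, 26.1, 15.01 and 15.03 (at least 11.5-fold higher, log2 change 4.06 ± 0.40, adjusted p = 0.00175). POMC, the precursor of ACTH, melanocortins and beta-endorphin, measured 371, 179, 292 and 278 in CV taste buds, against 47.5, 30.03, 20.5 and 25.2 in LE (at least 8.80-fold higher, log2 change 3.21 ± 0.33, adjusted p = 0.002). Groups did not overlap in any of these, and the lowest GHRHR value of CV taste buds was that of animal 1. STC2, a relative of STC1 (4.73), SSTR1, a somatostatin receptor (4.04), PTHLH, a parathyroid hormone-like peptide (3.93), OXT (ZRANB1 in the array annotation), oxytocin (3.14) and NPR2, a natriuretic peptide receptor (2.61) also passed. GHRH itself did not pass (log2 change 1.55 ± 0.57, adjusted p = 0.0811). NPR2 did not pass without animal 4 (adjusted p 0.00457 to 0.095).

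Adhesion molecules of neurons were among the larger changes. Of 23 such genes named on the array, 17 were tested, 12 were higher and 0 lower, with a median log2 change of 5.50 (4.50 with low values raised), and 6 entered the test through CV taste buds alone. NRCAM, a cell adhesion molecule of axons, measured 1216, 1068, 869 and 1003 in CV taste buds, against 9.63, 8.54, 5.91 and 4.08 in LE (at least 41.2-fold higher, log2 change 7.27 ± 0.31, adjusted p = 0.000335). For CDH2, N-cadherin, the values were 1820, 1819, 1420 and 1210 in CV taste buds and 6.12, 7.95, 6.79 and 33.99 in LE (at least 57.2-fold higher, log2 change 7.23 ± 0.57, adjusted p = 0.000988). PTPRD, a receptor phosphatase that organizes synapses, had 4076, 2270, 1766 and 2847 in CV taste buds, while LE had 5.03, 6.09, 8.03 and 89.6 (at least 75.9-fold higher, log2 change 7.74 ± 0.77, adjusted p = 0.00181). LE of animal 5 was the highest LE sample of PTPRD and CDH2, still far under the lowest CV value. NRXN3, neurexin 3, a presynaptic adhesion molecule (6.95), LRRN1, a leucine-rich repeat protein (7.17), LRRN3, its relative, lowest in CV taste buds of animal 1 (6.21) and CNTN4, a contactin (6.00) were further members with large changes.

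Proteins of the neuronal cytoskeleton were higher with 1 exception among those that passed. Of 21 such genes named on the array, 13 were tested, 11 were higher and 1 lower, with a median log2 change of 4.02 (2.82 with low values raised), and 4 entered the test through CV taste buds alone. GAP43, a growth cone protein, measured 693, 2762, 966 and 942 in CV taste buds, against 22.6, 16.2, 10.3 and 33.6 in LE (at least 42.7-fold higher, log2 change 5.93 ± 0.53, adjusted p = 0.00139). For UCHL1, a ubiquitin hydrolase abundant in neurons, the values were 1092, 262, 229.5 and 509 in CV taste buds and 18.3, 5.41, 12.5 and 8.34 in LE (at least 17.1-fold higher, log2 change 5.41 ± 0.40, adjusted p = 0.000838). TUBB2B, a beta tubulin of neurons, measured 3362, 3881, 3762 and 3814 in CV taste buds, against 10.01, 6.91, 7.49 and 184 in LE (at least 89.9-fold higher, log2 change 7.72 ± 0.86, adjusted p = 0.00245). LE of animal 5 was the brightest LE sample for GAP43 and TUBB2B. MAP1B, a microtubule-associated protein (4.74), KIF1A (RCAN2 in the array annotation), a motor of vesicle transport (4.28), MAP6, a microtubule stabilizer (4.02) and INA, an intermediate filament of neurons (3.26) were higher. TUBA4A, an alpha tubulin, was lower (log2 change -2.04 ± 0.38, adjusted p = 0.0113). TUBA4A did not pass without animal 4 (adjusted p 0.00016 to 0.181).

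Fewer genes of axon guidance passed. Of 30 guidance genes named on the array, 17 were tested, 8 were higher and 0 lower, with a median log2 change of 1.30 (0.90 with low values raised), and 5 entered the test through CV taste buds alone. EPHA7, an ephrin receptor, measured 1073, 564, 641 and 634 in CV taste buds, against 4.61, 8.67, 7.03 and 7.00 in LE (at least 28.2-fold higher, log2 change 6.72 ± 0.39, adjusted p = 0.000464). For NRP2, neuropilin 2, a coreceptor of semaphorins, the values were 343, 226, 702 and 797 in CV taste buds and 5.70, 5.91, 6.04 and 7.54 in LE (at least 18.2-fold higher, log2 change 6.19 ± 0.38, adjusted p = 0.000523). All LE values of EPHA7 and NRP2 were below 9 units. SEMA5A, a semaphorin (5.11), EPHB2, an ephrin receptor (3.14), SEMA4C, a semaphorin (2.74), SLIT3 (ATP5F1E in the array annotation), a guidance ligand (2.57), EPHA4 (JPT1 in the array annotation), an ephrin receptor (2.42) and NTN4, a netrin (1.88) passed with smaller changes. EPHA4 did not pass without animal 5 (adjusted p 0.00214 to 0.172). NTN4 did not pass without animal 1, 4 or 5 and with values under 25 raised to 25 (adjusted p 0.0023 to 0.364). Neurotrophic genes, whose ligands attract and maintain nerve fibres, were led by the artemin system. Of 14 such genes named on the array, 9 were tested, 5 were higher and 0 lower, with a median log2 change of 2.58 (1.56 with low values raised), and 1 entered the test through CV taste buds alone. GFRA3, the artemin receptor, measured 4573, 4601, 5965 and 5405 in CV taste buds, against 11.2, 37.9, 14.4 and 15.1 in LE (at least 184-fold higher, log2 change 8.19 ± 0.41, adjusted p = 0.00036). For RET, the kinase that signals for this receptor family, the values were 310, 347, 137 and 379 in CV taste buds and 9.62, 10.1, 7.73 and 8.20 in LE (at least 10.9-fold higher, log2 change 4.95 ± 0.34, adjusted p = 0.000695). BDNF, the neurotrophin that attracts gustatory fibres in mice, measured 474, 565, 475 and 490.3 in CV taste buds, against 23.4, 58.6, 75.6 and 34.9 in LE (at least 11.3-fold higher, log2 change 3.52 ± 0.37, adjusted p = 0.00213). ARTN, artemin (3.79) and NGFR, the common neurotrophin receptor (2.58) were higher as well, and the 4 CV values of BDNF lay close together.

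Ion channels and purinergic genes separated less evenly. Of 28 potassium channel genes named on the array, 11 were tested, 8 were higher and 1 lower, with a median log2 change of 3.96 (2.90 with low values raised), and 5 entered the test through CV taste buds alone. KCNE3, an accessory subunit, measured 2224, 2226, 2377 and 1604 in CV taste buds, against 8.73, 10.7, 5.25 and 20.03 in LE (at least 83.4-fold higher, log2 change 7.71 ± 0.46, adjusted p = 0.000493). KCNE3 was lowest in CV taste buds of animal 5. KCNH7, an ERG channel (7.17), KCNT2, a sodium-activated channel (5.53), KCND3, an A-type channel (5.28), KCNH2, an ERG channel (4.25), KCNB2, a delayed rectifier (3.96) and KCNQ3, an M-current channel (3.26) were higher too. KCNK1, the channel TWIK1, had 26.7, 78.1, 143 and 97.8 in CV taste buds, while LE had 668, 444, 648 and 1132 (9.29-fold lower, log2 change -3.22 ± 0.48, adjusted p = 0.00568). Taste cells use ATP as a transmitter, and of 19 ATP-handling genes and purinergic receptors named on the array, 10 were tested, 4 were higher and 3 lower, with a median log2 change of -0.75 (-0.71 with low values raised), and 1 entered the test through CV taste buds alone. P2RX4, an ATP-gated channel, measured 71.96, 422, 226 and 143 in CV taste buds, against 19.6, 22.9, 14.2 and 30.8 in LE (at least 6.73-fold higher, log2 change 3.07 ± 0.51, adjusted p = 0.0077). PANX1, a pannexin channel (2.60) and ADORA2B, an adenosine receptor (3.30) were higher. P2RY2, a G protein-coupled ATP receptor, had 27.02, 23.4, 21.3 and 40.96 in CV taste buds, while LE had 561, 384, 231 and 374 (at least 12.8-fold lower, log2 change -3.76 ± 0.33, adjusted p = 0.00132). The ATP-gated channel P2RX2 had 31.1, 20.5, 23.2 and 23.6 in CV taste buds and 249.5, 40.4, 84.96 and 41.8 in LE (log2 change -1.67 ± 0.45, adjusted p = 0.0344), and the ectoenzyme ENTPD8 was lower too (log2 change -1.12 ± 0.27, adjusted p = 0.0258). P2RX2 did not pass whichever 1 animal was left out and with no minimum (adjusted p 0.0032 to 0.192). ENTPD8 did not pass whichever 1 animal was left out (adjusted p 0.00452 to 0.362).

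Transcription factors of neural and sensory lineages gave one of the highest medians. Of 26 such factors named on the array, 20 were tested, 18 were higher and 2 lower, with a median log2 change of 5.65 (4.27 with low values raised), and 10 entered the test through CV taste buds alone. PROX1, a homeobox factor of progenitors and sensory organs, had 207, 838, 876 and 799 in CV taste buds, while LE had 7.00, 7.22, 9.82 and 6.48 (at least 23.6-fold higher, log2 change 6.29 ± 0.44, adjusted p = 0.000722). The lowest CV value of PROX1 was that of animal 1, and all LE values were under 10 units. INSM1, a zinc finger factor of neuroendocrine cells (6.74), EYA1, a transcriptional coactivator of sensory placodes (5.75), ZNF483, a zinc finger protein (8.03), TOX3, a high mobility group protein (7.19) and ST18, a zinc finger factor of the MYT family (6.18) passed. SATB1, a chromatin organizer, ran the other way with 416, 279.9, 235 and 444 in CV taste buds and 1485, 625, 856 and 1355 in LE (log2 change -1.62 ± 0.29, adjusted p = 0.00998), and so did ID4, an inhibitor of basic helix-loop-helix factors (log2 change -1.81 ± 0.29, adjusted p = 0.00721). ISL1, a homeobox factor, was not tested and had 8.99, 896, 101 and 13.4 in CV taste buds and 14.7, 11.5, 10.6 and 7.99 in LE, highest in CV taste buds of animal 3.

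Of the SOX factors, the taste progenitor factor SOX2 differed little. Of 15 SOX genes named on the array, 9 were tested, 6 were higher and 1 lower, with a median log2 change of 3.61 (1.68 with low values raised), and 3 entered the test through CV taste buds alone. SOX2, on which taste bud formation depends in mice, had 2896, 2395, 2740 and 3110 in CV taste buds and 1266, 1468, 1444 and 1586 in LE (1.93-fold higher, log2 change 0.95 ± 0.28, adjusted p = 0.0427), and its groups did not overlap. SOX4, a factor of progenitors and young neurons, measured 1639, 2104, 2073 and 2292 in CV taste buds, against 77.9, 125, 129.7 and 216 in LE (15.7-fold higher, log2 change 3.97 ± 0.30, adjusted p = 0.000939). SOX6, a factor of neural and cartilage development, had 661, 58.7, 789.6 and 815 in CV taste buds, while LE had 31.7, 23.8, 13.9 and 33.7 (at least 13.9-fold higher, log2 change 4.03 ± 0.75, adjusted p = 0.0109). SOX6 was far lower in CV taste buds of animal 3 than in the others. SOX5, the partner of SOX6 (4.85), SOX1, a neural progenitor factor (4.65) and SOX21, a related factor (3.61) were higher, and SOX9 had 38.5, 30.5, 33.9 and 20.9 in CV taste buds and 79.2, 45.6, 76.4 and 49.7 in LE (log2 change -1.01 ± 0.29, adjusted p = 0.0401). SOX2 did not pass whichever 1 animal was left out and with each array centred on its median (adjusted p 0.0062 to 0.389). SOX9 did not pass whichever 1 animal was left out (adjusted p 0.0084 to 0.458).

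In the hedgehog pathway, the ligand and its receptor were higher together. Of 11 pathway genes named on the array, 7 were tested, 5 were higher and 0 lower, with a median log2 change of 3.84 (3.19 with low values raised), and 2 entered the test through CV taste buds alone. SHH, Sonic hedgehog, the ligand, measured 2137, 1824, 1971 and 1444 in CV taste buds, against 15.1, 10.6, 13.5 and 16.6 in LE (at least 73.01-fold higher, log2 change 7.05 ± 0.31, adjusted p = 0.000335). For PTCH1, its receptor and at the same time a transcriptional target, the values were 710, 1009, 1628 and 2244 in CV taste buds and 10.5, 118, 166 and 104 in LE (at least 15.1-fold higher, log2 change 4.23 ± 0.56, adjusted p = 0.00401). GAS1, a coreceptor, had 689, 473, 239.7 and 290.1 in CV taste buds, while LE had 9.57, 6.40, 5.00 and 7.62 (at least 15.5-fold higher, log2 change 5.80 ± 0.32, adjusted p = 0.000427). DISP1, which releases the lipid-bound ligand, measured 26.1, 646, 320.4 and 301 in CV taste buds, against 7.23, 9.34, 10.9 and 52.2 in LE (at least 6.68-fold higher, log2 change 3.84 ± 0.77, adjusted p = 0.0139). LE of animal 1 was at background for PTCH1, and CV taste buds of animal 1 had only 26.1 units of DISP1, within the LE values. BOC, another coreceptor (3.19) was higher. The transducer SMO (log2 change 2.07 ± 0.65, adjusted p = 0.0546) and the inhibitor SUFU (log2 change 1.11 ± 0.53, adjusted p = 0.151) did not pass. The effector GLI2 was not tested, with 20.5, 15.5, 182 and 132 in CV taste buds and 13.01, 9.02, 11.7 and 10.9 in LE, above background in CV taste buds of animals 4 and 5. DISP1 did not pass without animal 4 (adjusted p 0.00392 to 0.122).

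Notch pathway genes moved in both directions. Of 20 pathway genes named on the array, 17 were tested, 6 were higher and 2 lower, with a median log2 change of 0.30 (0.30 with low values raised), and 3 entered the test through CV taste buds alone. HEY1, a repressor and target of the pathway, measured 2448, 1703, 2269 and 2149 in CV taste buds, against 12.2, 9.91, 8.62 and 9.98 in LE (at least 84.9-fold higher, log2 change 7.72 ± 0.28, adjusted p = 0.000335). LFNG, a glycosyltransferase that tunes the receptors, had 2853, 3006, 2969 and 3110 in CV taste buds, while LE had 66.8, 379, 313 and 164 (15.7-fold higher, log2 change 3.97 ± 0.48, adjusted p = 0.00306). HES1, the classic target, measured 68.8, 68.4, 59.9 and 33.3 in CV taste buds, against 210.2, 339.6, 207 and 189 in LE (4.15-fold lower, log2 change -2.05 ± 0.31, adjusted p = 0.00558). LE of animal 1 had the lowest LFNG value, and HES1 was lower in CV taste buds of all 4 animals while its relatives HEY1, HEYL and HES5 were higher. HEYL, a related repressor (4.10), HES5, a repressor of the same family (4.11), NOTCH4, a receptor (3.20) and JAG2, a ligand (2.62) passed. NOTCH2 had 1025, 1006, 1596 and 1321 in CV taste buds and 2170, 2580, 2476 and 2958 in LE (log2 change -1.06 ± 0.29, adjusted p = 0.0353). The ligand JAG1 did not pass (log2 change 0.48 ± 0.40, adjusted p = 0.379). NOTCH2 did not pass whichever 1 animal was left out (adjusted p 0.0107 to 0.28).

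Among Wnt pathway genes, targets and receptors were higher, and ligands were found on both sides. Of 29 pathway genes named on the array, 19 were tested, 8 were higher and 3 lower, with a median log2 change of 1.73 (1.38 with low values raised), and 3 entered the test through CV taste buds alone and 2 through LE alone. LEF1, a transcription factor of the pathway, measured 1826, 1252, 1246 and 1285 in CV taste buds, against 10.5, 7.55, 6.82 and 14.8 in LE (at least 55.3-fold higher, log2 change 7.19 ± 0.32, adjusted p = 0.000335). For AXIN2, a feedback target, the values were 1073, 1174, 1126 and 1245 in CV taste buds and 16.9, 45.5, 6.92 and 7.33 in LE (at least 39.7-fold higher, log2 change 6.36 ± 0.54, adjusted p = 0.0012). LGR5, an R-spondin receptor that marks taste stem cells of the posterior tongue in mice, had 25.9, 290.5, 622 and 756 in CV taste buds, while LE had 4.61, 6.57, 5.16 and 5.93 (at least 9.76-fold higher, log2 change 5.47 ± 0.81, adjusted p = 0.00544). LGR5 was just above 25 units in CV taste buds of animal 1, while the other 3 animals were at 290.5 units or more. LRP6, a Wnt coreceptor (4.25), LGR6, a relative of LGR5 (4.14), FZD3, a receptor (3.01) and WNT5B, a ligand (2.99) passed. For WNT4, a ligand, the values were 17.1, 16.8, 21.1 and 16.5 in CV taste buds and 1199, 250.2, 683 and 529 in LE (at least 22.9-fold lower, log2 change -5.01 ± 0.42, adjusted p = 0.00119). The ligand WNT7B (log2 change -2.78 ± 0.29, adjusted p = 0.00197) and the antagonist SFRP1 (log2 change -2.23 ± 0.38, adjusted p = 0.00828) were also lower. WIF1, a secreted Wnt inhibitor, was not tested, with 249, 9.69, 241 and 160.4 in CV taste buds and 5.53, 4.61, 6.08 and 6.12 in LE, at background in animal 3. SFRP1 did not pass in the fit of 20 samples (adjusted p 0.00606 to 0.151).

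Growth factors and receptor kinases moved both ways. Of 32 such genes named on the array, 26 were tested, 11 were higher and 5 lower, with a median log2 change of 2.69 (2.01 with low values raised), and 5 entered the test through CV taste buds alone and 1 through LE alone. TGFB2, a transforming growth factor, measured 1967, 2761, 4068 and 4966 in CV taste buds, against 10.5, 6.59, 6.69 and 12.4 in LE (at least 129.5-fold higher, log2 change 8.54 ± 0.37, adjusted p = 0.000335). For IGF1, insulin-like growth factor 1, the values were 2900, 3587, 3843 and 3527 in CV taste buds and 6.65, 14.3, 8.76 and 9.03 in LE (at least 138-fold higher, log2 change 8.53 ± 0.30, adjusted p = 0.000335). CV values of TGFB2 were lower in animals 1 and 3 than in animals 4 and 5, and IGF1 differed less between animals. KIT, a receptor kinase (5.08), KITLG, its ligand (5.76), PDGFA, a platelet-derived growth factor chain (6.41), FGF13, an intracellular FGF that binds sodium channels (6.76), BAMBI, a pseudoreceptor of the TGF-beta family (6.19), ERBB4, a neuregulin receptor (6.05) and FGFR1, an FGF receptor (5.73) were higher. Among the other listed members of the EGF family, the receptors ERBB3 (-1.63) and ERBB2 (-2.64) and the ligands TGFA (-1.43) and AREG, amphiregulin (-4.13) were lower, and so was TGFB3, a transforming growth factor (-3.40). The EGF family ligand BTC, betacellulin, is not in the list, was picked after its values were seen and was higher (3.89). ERBB2 had 16.6, 215, 179 and 124 in CV taste buds and 527, 602, 862 and 439.6 in LE, the lowest of them in CV taste buds of animal 1. ERBB2 did not pass without animal 4 or 5 (adjusted p 0.00303 to 0.138). TGFA did not pass without animal 3 or 5 and with values under 25 raised to 25 (adjusted p 0.0133 to 0.166).

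Keratins of simple epithelia were higher in part. Of 6 such keratins named on the array, 6 were tested, 3 were higher and 1 lower, with a median log2 change of 1.56 (1.56 with low values raised), and 1 entered the test through CV taste buds alone. KRT20, a keratin of taste cells and gut epithelium, measured 1652, 1017, 1423 and 869.8 in CV taste buds, against 8.31, 6.26, 11.1 and 9.22 in LE (at least 48.03-fold higher, log2 change 7.13 ± 0.31, adjusted p = 0.000335). For KRT19 the values were 3388, 4365, 3789 and 3018 in CV taste buds and 32.5, 373, 29.2 and 188 in LE (39.9-fold higher, log2 change 5.32 ± 0.70, adjusted p = 0.00393). KRT18, the usual partner of KRT8, had 364, 322, 454 and 411 in CV taste buds, while LE had 113, 85.3, 71.8 and 105 (4.17-fold higher, log2 change 2.06 ± 0.31, adjusted p = 0.00551). LE values of KRT19 were high in animals 3 and 5. KRT7 did not pass (log2 change 1.07 ± 0.34, adjusted p = 0.0565), and KRT23 was lower, with 2811, 3040, 2423 and 2395 in CV taste buds and 5145, 8423, 8202 and 7808 in LE (log2 change -1.45 ± 0.30, adjusted p = 0.016). KRT23 did not pass without animal 3, 4 or 5 (adjusted p 0.00358 to 0.304). Genes of basal epithelial cells and their anchorage to the basement membrane were higher in CV taste buds. The study describes its LE areas as taken from the surface epithelium around the papillae. For these genes, the layers captured and the tissue cannot be told apart. Of 13 such genes named on the array, 11 were tested, 9 were higher and 0 lower, with a median log2 change of 3.26 (2.97 with low values raised), and 1 entered the test through CV taste buds alone. LAMB3, a chain of laminin 332, measured 519, 908, 1446 and 738 in CV taste buds, against 17.1, 15.2, 19.8 and 52.5 in LE (at least 27.99-fold higher, log2 change 5.21 ± 0.47, adjusted p = 0.00143). For DST, the hemidesmosome plakin dystonin, the values were 1974, 962, 1685 and 1469 in CV taste buds and 18.1, 94.4, 37.9 and 134 in LE (at least 25.03-fold higher, log2 change 4.76 ± 0.66, adjusted p = 0.00439). ITGA6, the alpha subunit of the hemidesmosome integrin, had 849, 621, 1508 and 1308 in CV taste buds, while LE had 8.84, 60.2, 53.4 and 191 (at least 16.1-fold higher, log2 change 4.39 ± 0.67, adjusted p = 0.006). DST and ITGA6 were lowest in LE of animal 1, and the groups did not overlap. ITGB4, the beta subunit of that integrin (3.26), COL17A1, a hemidesmosome collagen (3.01), ITGA3, a laminin-binding integrin (3.32) and LAMA5, a laminin alpha chain (2.92) passed too. TP63, the basal cell factor of stratified epithelia, had 205, 604, 472 and 916 in CV taste buds and 600.2, 2100, 1158 and 1038 in LE and missed the threshold (log2 change -1.21 ± 0.37, adjusted p = 0.0505).

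Differentiation genes of the stratified epithelium were lower in CV taste buds. Of 14 suprabasal keratins and related genes named on the array, 10 were tested, 0 were higher and 5 lower, with a median log2 change of -2.77 (-2.50 with low values raised). KRT13, the main keratin of oral epithelium, measured 675, 244, 464 and 273 in CV taste buds, against 17369, 16900, 17233 and 16227 in LE (44.5-fold lower, log2 change -5.48 ± 0.36, adjusted p = 0.000602). For KRT4, its partner, the values were 1304, 238, 973 and 573 in CV taste buds and 13039, 11019, 13793 and 13638 in LE (19.9-fold lower, log2 change -4.31 ± 0.44, adjusted p = 0.0019). The keratins KRT78 (-5.70) and KRT80 (-3.77) were also lower. KRT13 and KRT4 remained above 200 units in CV taste buds of all 4 animals. In the cornified envelope, the crosslinked protein shell of the outermost cells, the difference was uniform. Of 16 envelope genes named on the array, 15 were tested, 0 were higher and 15 lower, with a median log2 change of -5.93 (-5.82 with low values raised), and 2 entered the test through LE alone. IVL, involucrin, a scaffold of the envelope, measured 9.62, 9.33, 14.01 and 6.71 in CV taste buds, against 1815, 900.4, 902 and 1392 in LE (at least 47.9-fold lower, log2 change -6.96 ± 0.39, adjusted p = 0.000446). For CRNN, cornulin, the values were 352, 33.4, 28.3 and 112 in CV taste buds and 12774, 11537, 12785 and 12170 in LE (158-fold lower, log2 change -7.30 ± 0.66, adjusted p = 0.00143). SPRR3, a small proline-rich protein, had 1079, 138, 288 and 392 in CV taste buds, while LE had 20347, 21648, 21675 and 21998 (59.5-fold lower, log2 change -5.89 ± 0.53, adjusted p = 0.00141). CV taste buds of animal 1 had the highest CV values of CRNN and SPRR3. LOR, loricrin (-6.94), TGM1, a transglutaminase that crosslinks the envelope (-6.26), TGM3, a transglutaminase (-6.19), SCEL, sciellin (-6.82) and TCHH, trichohyalin (-6.43) were further members.

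Cell junctions changed in composition, some members being higher and more of them lower. Of 14 desmosome genes named on the array, 13 were tested, 3 were higher and 7 lower, with a median log2 change of -1.29 (-0.89 with low values raised), and 1 entered the test through LE alone. DSG2, the desmoglein of simple epithelia, measured 1495, 1409, 1807 and 1617 in CV taste buds, against 6.14, 99.1, 32.4 and 22.1 in LE (at least 41.9-fold higher, log2 change 5.94 ± 0.67, adjusted p = 0.00249). For DSG1, the desmoglein of upper layers, the values were 17.8, 14.4, 52.8 and 8.45 in CV taste buds and 429, 477, 671 and 563 in LE (at least 17.5-fold lower, log2 change -4.84 ± 0.45, adjusted p = 0.0015). DSG2 and DSG1 thus ran in opposite directions, each without overlap. DSG3, the desmoglein of lower layers (-2.81), PKP1, plakophilin 1 (-5.76), PKP3, plakophilin 3 (-2.53) and JUP, plakoglobin (-2.54) were lower, and PKP2, plakophilin 2 (3.59) and DSC1, a desmocollin (3.18) were higher. DSG3 did not pass with values under 25 raised to 25 (adjusted p 0.000395 to 0.0907). PKP2 did not pass without animal 1, 4 or 5 (adjusted p 0.0137 to 0.216). In tight junctions, of 18 genes named on the array, 15 were tested, 3 were higher and 7 lower, with a median log2 change of -1.26 (-1.32 with low values raised), and 1 entered the test through LE alone. CLDN5, the claudin of endothelium, measured 396, 435, 584 and 737 in CV taste buds, against 26.7, 12, 24.7 and 25.3 in LE (at least 20.5-fold higher, log2 change 4.63 ± 0.33, adjusted p = 0.000783). For CLDN10, a claudin that forms ion pores, the values were 9.56, 12.4, 167 and 60.5 in CV taste buds and 2355, 1855, 1437 and 2411 in LE (at least 39.3-fold lower, log2 change -5.90 ± 0.83, adjusted p = 0.00466). For CLDN10, CV taste buds of animal 4 had the highest CV value. The claudins CLDN1 (-3.33), CLDN4 (-2.02) and CLDN7 (-2.16) and OCLN, occludin (-2.27) were lower, while CLDN15, a claudin (2.73) and TJP3, a junction scaffold (2.09) were higher. OCLN did not pass without animal 5 (adjusted p 0.00254 to 0.18). CLDN15 did not pass without animal 1, 4 or 5, with no minimum and with values under 25 raised to 25 (adjusted p 0.0258 to 0.22). Connexins form gap junctions. Of 6 connexin genes named on the array, 2 were tested, 0 were higher and 2 lower, with a median log2 change of -4.90 (-4.37 with low values raised). GJB6, connexin 30, measured 13.3, 27.6, 29.8 and 39.2 in CV taste buds, against 2058, 1877, 3320 and 1560 in LE (at least 70.5-fold lower, log2 change -6.37 ± 0.41, adjusted p = 0.000587). The other was GJB5 (-3.43).

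Most secreted and membrane proteases of the upper epithelium and their inhibitors were lower. Of 28 such genes named on the array, 27 were tested, 0 were higher and 22 lower, with a median log2 change of -5.24 (-4.92 with low values raised), and 4 entered the test through LE alone. KLK6, a kallikrein, measured 21.8, 15.1, 12.8 and 11.7 in CV taste buds, against 3749, 3698, 6529 and 2705 in LE (at least 158-fold lower, log2 change -8.05 ± 0.36, adjusted p = 0.000335). For SPINK7, a Kazal-type inhibitor, the values were 25.9, 22.7, 109 and 16.6 in CV taste buds and 6517, 3510, 5888 and 7302 in LE (at least 154-fold lower, log2 change -7.45 ± 0.54, adjusted p = 0.000785). CV taste buds of animal 4 had the highest CV value of SPINK7, still far under LE. KLK5, the kallikrein that starts the desquamation cascade of skin (-6.36), SERPINB2, a serpin (-7.33), PRSS27, a membrane serine protease (-7.94), TMPRSS11F, a membrane serine protease (-6.38), KLK7, a kallikrein (-6.30) and TMPRSS11E, described above, were lower too. The protease ST14 (log2 change 0.32 ± 0.33, adjusted p = 0.479) and its inhibitor SPINT2 (log2 change 0.24 ± 0.27, adjusted p = 0.508) did not pass. Most genes of the lipid barrier were lower too. Of 21 such genes named on the array, 18 were tested, 0 were higher and 13 lower, with a median log2 change of -3.03 (-2.31 with low values raised), and 4 entered the test through LE alone. ALOX12B, a lipoxygenase of the epidermal barrier, measured 14.2, 11.9, 10.8 and 17.2 in CV taste buds, against 1319, 253, 956 and 1317 in LE (at least 32.2-fold lower, log2 change -5.92 ± 0.45, adjusted p = 0.000922). CERS3, the synthase of very long chain ceramides (-4.21), ALOX15B, a lipoxygenase (-5.79), SPTLC3, a subunit of serine palmitoyltransferase (-4.83), ABCA12, the lipid transporter of lamellar granules (-4.10) and UGCG, the glucosylceramide synthase (-3.98) were further members.

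The antimicrobial and alarm proteins that passed were lower with 1 exception. Of 14 such genes named on the array, 13 were tested, 1 was higher and 8 lower, with a median log2 change of -3.88 (-2.17 with low values raised), and 2 entered the test through LE alone. S100A9, a subunit of calprotectin, measured 439.9, 255, 647 and 237 in CV taste buds, against 17657, 16941, 17796 and 17437 in LE (48.2-fold lower, log2 change -5.59 ± 0.36, adjusted p = 0.000584). DEFB1, beta-defensin 1, had 115, 136, 162 and 106 in CV taste buds, while LE had 5188, 6286, 6350 and 5382 (45.1-fold lower, log2 change -5.49 ± 0.27, adjusted p = 0.000359). S100A2, an S100 protein of basal epithelial cells, measured 1349, 1430, 366 and 1257 in CV taste buds, against 82.8, 164, 92.9 and 136 in LE (8.47-fold higher, log2 change 3.08 ± 0.40, adjusted p = 0.00387). S100A2 was the member that was higher, with animal 4 the lowest of the CV samples. S100A8, the other subunit of calprotectin (-4.08), the S100 proteins S100A14 (-4.77), S100P (-4.47) and S100A12 (-4.14) and LYZ, lysozyme (-3.88) were lower. S100P did not pass without animal 5 (adjusted p 0.000446 to 0.103). The interleukins and chemokines that passed were lower except CXCL14. Of 33 such genes named on the array, 21 were tested, 1 was higher and 11 lower, with a median log2 change of -2.37 (-1.59 with low values raised), and 1 entered the test through CV taste buds alone and 5 through LE alone. IL18, interleukin 18, measured 5.98, 3.60, 4.12 and 8.09 in CV taste buds, against 2646, 529, 1490 and 1425 in LE (at least 52.5-fold lower, log2 change -7.99 ± 0.39, adjusted p = 0.000356). For IL1F6, interleukin 36 alpha, the values were 34.8, 23.1, 19.1 and 24.6 in CV taste buds and 6624, 4072, 6769 and 7419 in LE (at least 223-fold lower, log2 change -7.94 ± 0.32, adjusted p = 0.000335). CXCL17, a mucosal chemokine, had 15.7, 6.58, 51.02 and 8.92 in CV taste buds, while LE had 2927, 4959, 5300 and 3693 (at least 137-fold lower, log2 change -8.12 ± 0.53, adjusted p = 0.000604). The groups of these 3 genes lay far apart. IL1A, interleukin 1 alpha (-6.88), IL1F8, interleukin 36 beta (-7.27), IL1F5, the interleukin 36 receptor antagonist (-7.04) and IL1RN, the interleukin 1 receptor antagonist (-5.96) were lower. IL8 had 110.3, 11.3, 1484 and 1550 in CV taste buds and 18.4, 19.4, 8.94 and 32.4 in LE and did not pass (log2 change 3.69 ± 1.32, adjusted p = 0.0771), with animals 4 and 5 high in CV taste buds. Of the complement genes, 6 of 13 named were tested, 2 were higher and 0 lower, with a median log2 change of 1.43 (1.20 with values under 25 raised to 25). C1R had 73.8, 177, 577 and 312 in CV taste buds and 58.2, 37.3, 11.9 and 19.98 in LE (log2 change 3.04 ± 0.86, adjusted p = 0.04) and CFB had 110.2, 14.8, 199.5 and 97.4 in CV taste buds and 15.9, 7.91, 27.7 and 19.8 in LE (log2 change 2.21 ± 0.42, adjusted p = 0.0119). C1R did not pass without animal 3, 4 or 5 and with no minimum (adjusted p 0.009 to 0.344). CFB did not pass without animal 4 or 5 (adjusted p 0.00501 to 0.207).

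Among cell cycle genes, cyclins, replication factors and inhibitors were among those that passed. As for the basal genes, the layers captured in LE and the tissue cannot be told apart. Of 26 cell cycle genes named on the array, 16 were tested, 7 were higher and 1 lower, with a median log2 change of 1.64 (1.17 with low values raised). PCNA, the sliding clamp of DNA replication, measured 381, 399, 407 and 692 in CV taste buds, against 8.46, 129, 85.2 and 38.05 in LE (at least 8.01-fold higher, log2 change 3.39 ± 0.70, adjusted p = 0.015). LE of animal 1 had the lowest and CV taste buds of animal 5 the highest PCNA value. CDKN1C, the cell cycle inhibitor p57 (4.66), CCNA2, cyclin A2 (3.23), TOP2A, topoisomerase II alpha (3.06), MCM4, a subunit of the replicative helicase (2.35), and its relatives MCM7 (2.09) and MCM6 (CAPZA2 in the array annotation) (2.04) were higher, and CDKN1B, the inhibitor p27 (-1.27) was lower. PCNA did not pass without animal 5 (adjusted p 0.00306 to 0.131). TOP2A did not pass with values under 25 raised to 25 (adjusted p 0.0028 to 0.0616). MCM7 did not pass without animal 3, 4 or 5 (adjusted p 0.0133 to 0.29). MCM6 did not pass without animal 1, 4 or 5 (adjusted p 0.0148 to 0.307). CDKN1B did not pass without animal 1, 4 or 5 (adjusted p 0.00688 to 0.344). MKI67, the common proliferation marker, was not tested, with 29.7, 21.1, 9.83 and 26.2 in CV taste buds and 44.8, 8.69, 12.5 and 11.3 in LE.

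**Figure D3:**
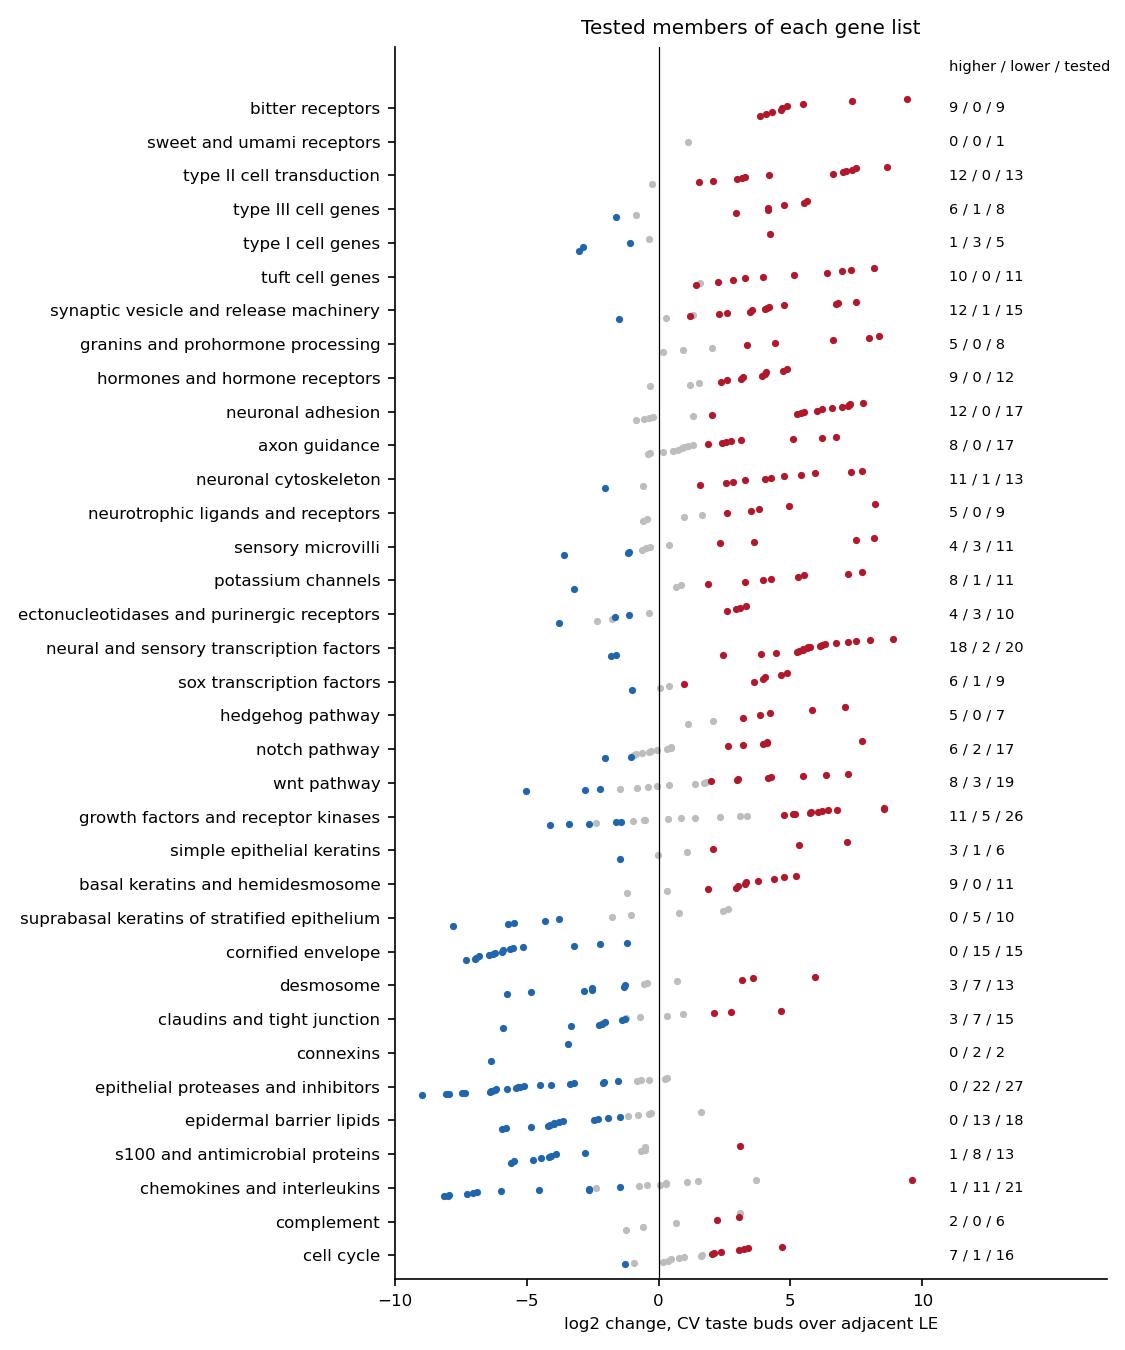
Log2 change (CV taste buds over adjacent LE) of the tested members of 35 gene lists, 1 point for each gene, with the counts of higher, lower and tested members on the right. Red points were higher, blue points lower and grey points did not pass by the adjusted p, and the list medians ran from -5.93 for the cornified envelope to 5.65 for neural and sensory transcription factors.

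Members that only 1 tissue brought to the minimum had to differ, so lists were counted again without them. Of all genes counted so, 21.9% of 8293 were higher and 15.5% lower. Of type II cell genes 5 of 6 were then higher and 0 lower, of tuft cell genes 5 of 6 and 0, of vesicle release genes 4 of 7 and 1, of neuronal adhesion genes 6 of 11 and 0, and of neural transcription factors 8 of 10 and 2. Of cornified envelope genes 0 of 13 were higher and 13 lower, of proteases and inhibitors 0 of 23 and 18, and of barrier lipid genes 0 of 14 and 9. Notch (3 higher and 2 lower of 14) and axon guidance genes (3 and 0 of 12) were nearer to all genes. So were growth factor genes (6 and 4 of 20) and lists not given here. No bitter receptor was left. Members were chosen by function, and no list was tested.

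Markers of other cells that the captured areas could hold were examined in the same 8 samples. The clefts of CV papillae receive the ducts of the von Ebner glands, whose serous cells secrete lipocalins, lysozyme and related proteins. Of 15 gland genes named on the array, 8 were tested, 1 was higher and 1 lower, with a median log2 change of -0.09 (0.19 with low values raised). AZGP1, zinc alpha-2-glycoprotein, measured 4117, 4036, 4186 and 3579 in CV taste buds, against 149, 168, 37.8 and 512 in LE (26.8-fold higher, log2 change 4.74 ± 0.65, adjusted p = 0.00428). LYZ was lower, with 216, 135, 245 and 115 in CV taste buds and 2043, 2131, 2424 and 3637 in LE. A further 4 gland genes were bright in CV taste buds of animals 4 and 5, while animals 1 and 3 had CV values that did not exceed the highest LE value. C20orf70, a secretory protein of the BPI fold family, had 16.5, 12.6, 1474 and 1217 in CV taste buds and 116, 14.99, 39.5 and 146 in LE (log2 change 1.30 ± 1.31, adjusted p = 0.467). C20orf114, of the same family, had 19.4, 43.4, 759 and 682 in CV taste buds and 98.5, 43.2, 43.3 and 80.6 in LE (log2 change 1.22 ± 1.10, adjusted p = 0.418). LCN1, the von Ebner gland lipocalin, had 10.9, 44.3, 363 and 423 in CV taste buds and 470.4, 72.8, 42.6 and 139 in LE (log2 change -0.36 ± 1.38, adjusted p = 0.854), and DMBT1, a salivary glycoprotein that was not tested, had 15.2, 17.3, 373 and 495 in CV taste buds and 19.4, 60.2, 16.9 and 15.2 in LE. With animals 1 and 3 alone, a choice made after seeing these values, 531 probe sets were higher and 503 lower in place of 2133 and 1888, and the part of gland cells in the results was not tested. Summed over all 15 named gland genes, intensities were 4898 to 8171 units in CV taste buds and 3649 to 7416 in LE.

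Leukocyte genes were mostly lower in CV taste buds. Of 17 leukocyte genes named on the array, 8 were tested, 1 was higher and 6 lower, with a median log2 change of -3.46 (-2.13 with low values raised), and 2 entered the test through LE alone. Their summed intensities were 566 to 1721 units in CV taste buds and 5806 to 6792 in LE. CD68, a lysosomal protein of macrophages, measured 17.6, 162, 36.5 and 52.6 in CV taste buds, against 2262, 1167, 1501 and 1366 in LE (at least 28.9-fold lower, log2 change -4.98 ± 0.68, adjusted p = 0.00427). For CD1A, the marker of Langerhans cells, the values were 8.39, 10.4, 8.88 and 5.40 in CV taste buds and 48.2, 312, 132 and 155 in LE (at least 5.30-fold lower, log2 change -4.04 ± 0.48, adjusted p = 0.00296). TYROBP, an adaptor of myeloid receptors, measured 14.96, 688, 389.5 and 13.7 in CV taste buds, against 1021, 1760, 1162 and 1012 in LE (at least 10.6-fold lower, log2 change -3.81 ± 1.02, adjusted p = 0.0334). TYROBP stood at 688 and 389.5 units in CV taste buds of animals 3 and 4 and at background in animals 1 and 5. CSF1R, the macrophage growth factor receptor (-3.10) was lower. CD74, the invariant chain, had 47.5, 288, 45.5 and 21.8 in CV taste buds and 115, 399.7, 242 and 179 in LE (log2 change -1.80 ± 0.49, adjusted p = 0.0362), and the pan-leukocyte gene PTPRC was higher, with 104, 299.9, 233 and 205 in CV taste buds and 19.8, 132, 80.5 and 130.3 in LE (log2 change 1.44 ± 0.38, adjusted p = 0.0308). TYROBP did not pass without animal 1 or 5 and with no minimum (adjusted p 0.00822 to 0.156). CD74 did not pass without animal 1, 4 or 5, without the animal block and with no minimum (adjusted p 0.0291 to 0.44). PTPRC did not pass whichever 1 animal was left out, without the animal block and in the fit of 20 samples (adjusted p 0.0225 to 0.19). The part of leukocytes in the lower interleukins above was not tested.

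Markers of the remaining cell types moved in both directions. Of 12 fibroblast genes named on the array, 5 were tested, 1 was higher and 0 lower, with a median log2 change of 1.00 (1.00 with low values raised). VIM, vimentin, had 3876, 2606, 2466 and 2202 in CV taste buds and 577, 1180, 1193 and 1314 in LE (log2 change 1.42 ± 0.42, adjusted p = 0.0454). VIM did not pass whichever 1 animal was left out, with no minimum and with each array centred on its median (adjusted p 0.00909 to 0.176). The stroma gene FBLN1 had 859, 21.5, 744 and 35.8 in CV taste buds and 64.8, 16.6, 10.2 and 29.4 in LE (log2 change 2.65 ± 1.07, adjusted p = 0.104), and POSTN, which was not tested, had 916, 16.3, 297 and 9.75 in CV taste buds and 7.02, 5.12, 6.00 and 5.50 in LE, both high in CV taste buds of animals 1 and 4. Fibroblast sums were 7842 to 12478 units in CV taste buds and 4039 to 6633 in LE. Of 10 endothelial and pericyte genes, 4 were tested and 1 was higher, CLDN5, also in the tight junction list. The list median was 0.59, with sums of 574 to 1877 units in CV taste buds and 205 to 466 in LE. PECAM1, the general endothelial marker, had 93.3, 33.9, 143 and 929 in CV taste buds and 38.9, 85.3, 70.2 and 205 in LE (log2 change 0.78 ± 0.60, adjusted p = 0.344), with CV taste buds of animal 5 high. Of 10 muscle genes, 2 were tested and none passed (median -0.63, sums of 141 to 193 units in CV taste buds and 176 to 260.2 in LE). Of 11 genes of Schwann cells and nerve named on the array, 6 were tested, 3 were higher and 3 lower, with a median log2 change of 0.48 (0.16 with low values raised), and 1 entered the test through CV taste buds alone and 1 through LE alone. Their sums were 1702 to 2630 units in CV taste buds and 3183 to 4667 in LE. L1CAM, an adhesion molecule of axons (5.25) and NGFR were among those higher and are also in the lists of neuronal genes, while PMP22, a myelin protein also found in epithelia, had 71.7, 27.2, 6.49 and 58.02 in CV taste buds and 1355, 1215, 677 and 1870 in LE (log2 change -5.36 ± 0.46, adjusted p = 0.00123) and MBP, myelin basic protein, had 15.7, 11.96, 15.3 and 15.2 in CV taste buds and 52.4, 28.9, 51.1 and 109 in LE (log2 change -1.90 ± 0.36, adjusted p = 0.0117). SOX10, the factor of Schwann cells, and S100B were not tested, and all of their values lay under 25 units. MBP did not pass with values under 25 raised to 25 (adjusted p 0.0062 to 0.209). Of 7 genes of melanocytes and Merkel cells, 3 were tested and 2 were higher, SOX2 and the melanocyte antigen MLANA, with a median of 0.95 and sums of 2768 to 4501 units in CV taste buds and 1833 to 2258 in LE. MLANA had 150.2, 162, 87.2 and 909.7 in CV taste buds and 11.3, 140.2, 7.69 and 9.80 in LE (log2 change 3.50 ± 0.98, adjusted p = 0.0381), and the melanocyte enzymes TYR, TYRP1 and DCT had means of 5.87 to 13.0 units in both tissues. MLANA did not pass without animal 1, 4 or 5, with no minimum and with values under 25 raised to 25 (adjusted p 0.0142 to 0.296).

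**Figure D4:**
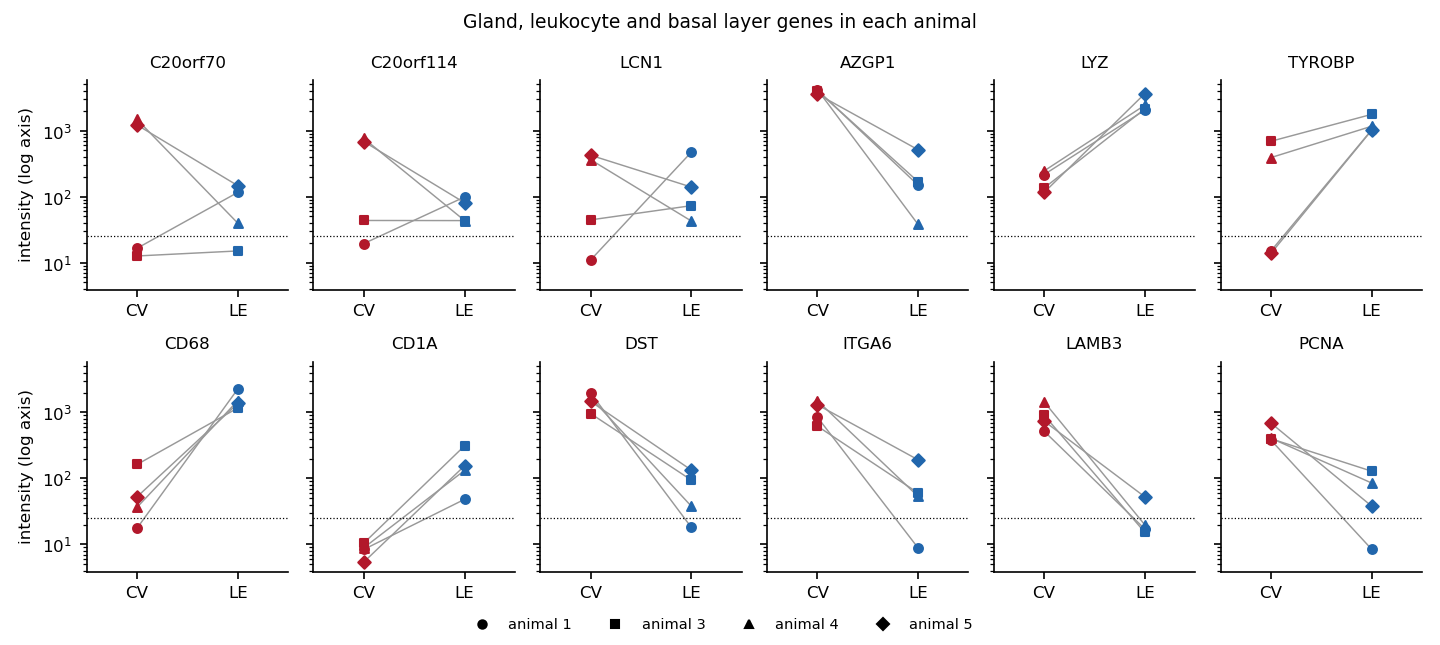
Intensity (log axis) of 12 gland, leukocyte and basal layer genes in CV taste buds (left of each panel) and adjacent LE (right), with a line joining the samples of 1 animal and the dotted line at 25 units. Of the CV taste buds, those of animals 4 and 5 were bright in C20orf70, C20orf114 and LCN1, TYROBP, CD68, CD1A and LYZ were lower in CV taste buds in all 4 animals, and DST, ITGA6, LAMB3 and PCNA were higher in all 4.

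The CV comparison was set against the same comparison for FG taste buds, the papillae of the front of the tongue, by testing the CV change minus the FG change over 20 samples (26176 probe sets). Few probe sets passed: 61 (0.233%) had a higher and 142 (0.542%) a lower change in CV than in FG under the same criteria, and 71 (0.271%) and 157 (0.6%) did by the adjusted p alone. With each array centred, 81 were higher and 97 lower, so that higher calls made up 45.5% with centring and 30% as reported. Leaving out 1 animal at a time gave 13 to 43 higher and 25 to 104 lower, the lowest without animal 3. Of the 30 genes named below, 9 lost the call without animal 1, 20 without 3, 17 without 4 and 18 without 5. Such genes are not marked below, and calls differ in firmness. LE around CV and FG papillae entered separately, so a gene can differ through either tissue.

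Genes with a larger change in CV than in FG included signalling receptors and taste receptors. SPOCK1, a matrix proteoglycan, had 616, 1101, 1054 and 914 in CV taste buds and 35.8, 19.9, 14.9 and 54.4 in LE, while FG taste buds had 5.90 to 17.9 units (median 10.1) and LE around FG papillae 5.17 to 126 units (median 44.04) (difference 6.62 ± 1.07, adjusted p = 0.0111). BMPR1B, a BMP receptor, had 672, 339, 111 and 199.9 in CV taste buds and 6.53, 6.33, 5.36 and 4.83 in LE, while FG taste buds had 3.47 to 8.63 units (median 4.62) and LE around FG papillae 5.69 to 8.15 units (median 6.72) (difference 5.97 ± 0.50, adjusted p = 0.000138). For LGR5, described above, FG taste buds had 3.90 to 44.9 units (median 6.29) and LE around FG papillae 4.28 to 10.9 units (median 5.50) (difference 4.99 ± 1.06, adjusted p = 0.0417). In these 3 genes the highest value of FG taste buds was 44.9 units. The bitter receptors TAS2R13 (difference 4.15 ± 0.63, adjusted p = 0.0078) and TAS2R43 (difference 3.35 ± 0.62, adjusted p = 0.024) had larger changes in CV, and TAS2R13 had 4.08 to 9.77 units (median 7.77) in FG taste buds. Type III genes were among them too: for DDC FG taste buds had 8.54 to 111 units (median 28.4) and LE around FG papillae 8.75 to 30.9 units (median 12.9) (difference 4.49 ± 0.72, adjusted p = 0.0109), and for CHRNA10 the log2 changes were 4.13 in CV and -0.39 in FG (difference 4.52 ± 0.45, adjusted p = 0.00042). The sulfotransferase HS3ST3A1 (difference 6.13 ± 0.90, adjusted p = 0.00616), the neuregulin receptor ERBB4 (difference 5.50 ± 0.75, adjusted p = 0.00447), SAMD5, an adaptor-like protein with a SAM domain (difference 5.25 ± 0.48, adjusted p = 0.000287), the Wnt inhibitor APCDD1 (difference 4.97 ± 0.87, adjusted p = 0.0172), the nuclear receptor ESRRG (difference 4.71 ± 0.54, adjusted p = 0.00114), the potassium channel KCNT2 (difference 4.05 ± 0.75, adjusted p = 0.024), S100A2 (difference 4.04 ± 0.81, adjusted p = 0.0347), the kinase BMX (difference 2.62 ± 0.42, adjusted p = 0.0111) and HES5 (difference 2.40 ± 0.50, adjusted p = 0.0397) also had larger changes in CV. BMX and HES5 passed in both kinds of taste buds, with log2 changes of 6.96 in CV and 4.33 in FG for BMX and 4.11 in CV and 1.72 in FG for HES5. In APCDD1 the tissues differed in another way. APCDD1 had 1520, 645, 972 and 752 in CV taste buds and 48.8, 83.7, 39.1 and 14.2 in LE, while FG taste buds had 333 to 1559 units (median 1306) and LE around FG papillae 107 to 3681 units (median 2010). Both kinds of taste buds were bright in it, and LE was dim around CV papillae and bright around FG papillae in most samples. ERBB4 had 395, 194, 242 and 501 in CV taste buds and 4.82, 3.73, 5.11 and 5.31 in LE, while FG taste buds had 3.91 to 28.03 units (median 6.11) and LE around FG papillae 3.93 to 17.1 units (median 4.56). ESRRG had 459, 464, 524 and 500.4 in CV taste buds and 10.9, 8.43, 11.4 and 8.82 in LE, while FG taste buds had 7.69 to 65.8 units (median 16.2) and LE around FG papillae 6.44 to 14.8 units (median 8.60). HS3ST3A1 had 390.4, 294, 484 and 459.6 in CV taste buds and 17.8, 20.6, 17.9 and 8.83 in LE, while FG taste buds had 11.2 to 170.5 units (median 34.7) and LE around FG papillae 59.95 to 178 units (median 84.3). CV taste buds alone stood above 100 units in all samples of ERBB4 and ESRRG, and HS3ST3A1 was above background in LE around FG papillae. SAMD5 had 794, 550.3, 551 and 194 in CV taste buds and 12.7, 10.5, 13.01 and 9.73 in LE, while FG taste buds had 9.43 to 45.5 units (median 16.4) and LE around FG papillae 9.17 to 36.6 units (median 12.5). KCNT2 had 314, 493, 160.1 and 182 in CV taste buds and 6.12, 5.36, 6.05 and 4.98 in LE, while FG taste buds had 8.56 to 93.1 units (median 10.2) and LE around FG papillae 5.05 to 8.21 units (median 5.71). In both genes LE around CV papillae was under 25 units in every sample.

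Genes with a smaller change in CV than in FG were of more than 1 kind. Some were lower in CV taste buds than in their LE. PCK1, an enzyme of gluconeogenesis, had 16, 20.4, 4.80 and 14.8 in CV taste buds and 1682, 1441, 505 and 524 in LE, while FG taste buds had 5.35 to 60.6 units (median 21.7) and LE around FG papillae 4.67 to 49.4 units (median 8.01) (difference -7.04 ± 1.00, adjusted p = 0.00511). For CLDN10 FG taste buds had 6.67 to 93.1 units (median 16.7) and LE around FG papillae 5.74 to 12.96 units (median 8.56) (difference -7.21 ± 1.02, adjusted p = 0.00507), and GPR183, a receptor of oxysterols on immune cells, had 4.36, 4.02, 3.68 and 5.58 in CV taste buds and 520.2, 346, 446 and 692 in LE, while FG taste buds had 7.33 to 195 units (median 41.5) and LE around FG papillae 12.3 to 535 units (median 48.2) (difference -6.31 ± 1.25, adjusted p = 0.0331). LE around CV papillae stood at 346 units or more in these 3 genes. BIRC3, an inhibitor of apoptosis (difference -4.75 ± 0.99, adjusted p = 0.0397), and IL1A (difference -4.09 ± 0.78, adjusted p = 0.027) were lower in CV taste buds too. Others were higher in FG taste buds than in their LE, and did not pass, or were not tested, in CV. PLAC8, a cysteine-rich protein, had 1079, 1629, 1428 and 1460 in CV taste buds and 1290, 2334, 1595 and 1201 in LE, while FG taste buds had 998 to 2728 units (median 1365) and LE around FG papillae 9.90 to 75.1 units (median 35.3) (difference -5.76 ± 0.55, adjusted p = 0.000334). TPH1, the hydroxylase that acts before DDC in serotonin synthesis, had 262 to 824 units (median 430.5) in FG taste buds (difference -4.46 ± 0.73, adjusted p = 0.0115), and the chemokine CCL2 had 831 to 2533 units (median 1176) (difference -4.58 ± 0.71, adjusted p = 0.00881). So DDC and TPH1, successive enzymes of 1 pathway, differed in opposite directions. PLAC8 was thus bright in LE around CV papillae and dim in LE around FG papillae. PHLDB2, a cortical protein (difference -5.95 ± 1.19, adjusted p = 0.0347), MEGF10, an engulfment receptor (difference -4.84 ± 0.73, adjusted p = 0.00755), C20H16orf54 (difference -4.80 ± 0.89, adjusted p = 0.024), IL23A (difference -3.58 ± 0.44, adjusted p = 0.00253), EFNB3, an ephrin (difference -3.41 ± 0.55, adjusted p = 0.0111), and SYT13 (difference -2.41 ± 0.50, adjusted p = 0.0397) had smaller changes in CV as well. SYT13 passed in both kinds of taste buds (4.18 in CV and 6.60 in FG). PHLDB2 had 59.6, 4.80, 226 and 9.11 in CV taste buds and 152, 10.9, 8.24 and 80.6 in LE, while FG taste buds had 207 to 1098 units (median 551) and LE around FG papillae 6.10 to 23.4 units (median 8.81). MEGF10 had 10.6, 5.54, 22 and 22.9 in CV taste buds and 9.75, 5.98, 47.9 and 5.23 in LE, while FG taste buds had 74.2 to 521 units (median 221) and LE around FG papillae 5.47 to 9.46 units (median 6.36). C20H16orf54 had 34.01, 8.78, 260.1 and 154 in CV taste buds and 10.3, 34.4, 76.01 and 63.9 in LE, while FG taste buds had 516 to 1244 units (median 823) and LE around FG papillae 6.63 to 91.8 units (median 19.7). FG taste buds were bright in these genes, and CV taste buds of some animals were above 25 units in PHLDB2 and C20H16orf54. EFNB3 had 20.7, 28.9, 7.15 and 8.23 in CV taste buds and 13.1, 11.4, 11.4 and 18.3 in LE, while FG taste buds had 48.6 to 206 units (median 117) and LE around FG papillae 7.28 to 15.6 units (median 10.01). IL23A had 134, 126, 242 and 126 in CV taste buds and 169.5, 95.04, 156 and 175 in LE, while FG taste buds had 226 to 609 units (median 486) and LE around FG papillae 20.4 to 54.7 units (median 33.5). IL23A was bright in LE around CV papillae too.

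**Figure D5:**
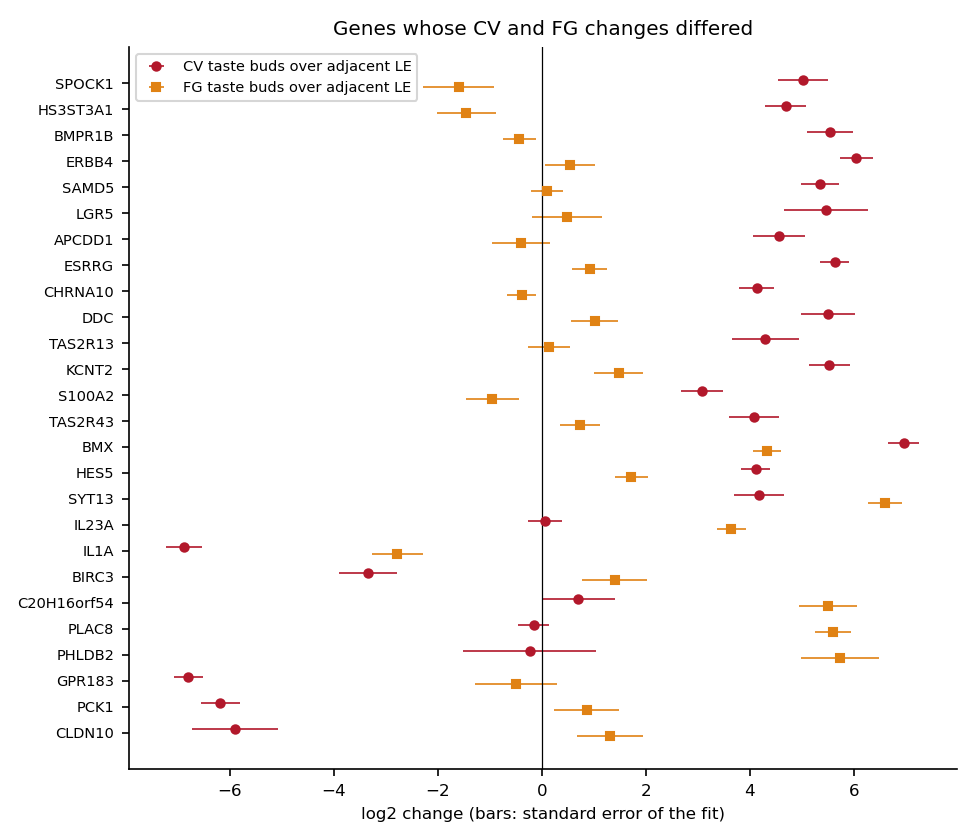
Log2 change of genes whose change differed between CV (red circles) and FG taste buds (orange squares), each over its adjacent LE, in the 4 CV animals and 6 FG animals. Bars are standard errors of the fits, and genes tested in both fits are shown, from SPOCK1 (difference 6.62) to CLDN10 (difference -7.21).

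In 4 other animals the top and the bottom of CV taste buds were taken apart and gave levels of the same genes, on a separate set of arrays, so that fraction, animals and array set cannot be told apart where they are set beside whole CV taste buds or LE. The top and the bottom came from the same animals, and their difference was not tested. TAS2R14 had 2786 to 3731 units (median 2963) in top fractions and 994 to 2163 units (median 1323) in bottom fractions. GNAT3 had 1544 to 2404 units (median 2028) in top and 355 to 1419 units (median 579) in bottom fractions. PTCH1 had 909.7 to 1770 units (median 1022) in top and 1655 to 3354 units (median 2882) in bottom fractions, and LGR5 had 126 to 517 units (median 292) in top and 64.8 to 163 units (median 84.1) in bottom fractions. KRT13 had 117 to 422 units (median 339) in top and 909 to 1738 units (median 1335) in bottom fractions. KRT13 of both fractions lay far below the 16227 to 17369 units of LE.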

How the data were processed

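RNA of laser-captured tissue was amplified and hybridized to Affymetrix Rhesus Macaque Genome Arrays. The labels name the Ovation Biotin system and the study's methods WT-Ovation Pico. The deposited intensities, 1 per probe set (52024), are on a linear scale. The authors made them from all 28 arrays together by GC-RMA, run in GeneSpring (version not given in the sources used here). Quantile normalization of this kind equalizes overall levels between tissues, and the arrays were designed for another macaque, so a dim probe set may reflect a mismatch. Of the probe sets, 24118 had 1 symbol, 1733 of them from the study's table and 22385 from the array annotation. Where both named a probe set, 120 of 1124 differed, and the other symbol is given beside the gene. The remaining 27906 were left unnamed. The array annotation did not list 26707 probe sets and gave several symbols for 358, some of which the study's table named.

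CV taste buds and adjacent LE of animals 1, 3, 4 and 5 were compared with limma 3.58.1 in R 4.3.3 on log2 values, after a minimum of 25 units in 4 of 8 samples, with the animal as a fixed block and Benjamini-Hochberg adjustment. Counts of probe sets also required 5-fold. The pairing came from the animal identifiers in the labels, and log2 deviations correlated at 0.046 to 0.098 within and -0.082 to 0.031 between animals. The CV change minus the FG change was tested in a fit of 20 samples with the same block. The fits were tested on simulated data. The alternatives were no block, no minimum, low values raised, centred arrays, the 20-sample fit, the methods' paired t-test and leaving out each animal. A gene was read by its brightest probe set, so other transcripts of it were not described.

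The named genes are the 15 largest changes in each direction, up to 8 passing members of each list by size of change, every bitter, sweet and umami receptor, passing markers of other cells, and the 8 largest differences from FG in each direction. Some genes that the rule names are not reported here. Members that did not pass, were not tested or fell outside this rule were chosen after their values were seen. The samples and lists were chosen with earlier results of these data known.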

Additional observations from a re-analysis of the deposited data

Results flagged for a closer look

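In 21 of 325 sets of 4 samples of 1 gene and tissue, 1 animal stood farther from the other 3 than Dixon's 95% critical value for 4 samples. Chance alone gives such a sample in about 1 of 20 sets. In CV taste buds, animal 1 was the outlying sample for CDH23 (801 units against 218 to 241), JUP (115 units against 238 to 249), KCNQ3 (467 units against 89.6 to 111), LEF1 (1826 units against 1246 to 1285), PROX1 (207 units against 799 to 876), PTPN6 (70.2 units against 318 to 379.9) and TAS2R10 (217 units against 366 to 397). Animal 3 stood apart in CV taste buds for SOX6 (58.7 units against 661 to 815). CV taste buds of animal 4 stood apart for ADORA2B (78.6 units against 157 to 171), CALHM3 (2794 units against 1771 to 1853), IL23A (242 units against 126 to 134), PAM (734 units against 369 to 382) and S100A2 (366 units against 1257 to 1430). Those of animal 5 did so for KCNE3 (1604 units against 2224 to 2377), KCNH7 (462 units against 1005 to 1037) and PCNA (692 units against 381 to 407). In LE, animal 1 was outlying for CLDN1 (136 units against 447 to 538), KRT23 (5145 units against 7808 to 8423), SCNN1B (732 units against 372 to 398) and VIM (577 units against 1180 to 1314). LE of animal 3 was outlying for CLDN4 (517 units against 781 to 816). The genes lie in different lists, and no single animal accounts for all of them.

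The change of taste buds over their LE differed between CV and FG papillae by the test of the difference itself in 61 probe sets with a higher and 142 with a lower change in CV. The differences in log2 change, CV minus FG, were positive for SPOCK1 (6.62), HS3ST3A1 (6.13), BMPR1B (5.97), ERBB4 (5.50), SAMD5 (5.25), LGR5 (4.99), APCDD1 (4.97), ESRRG (4.71), CHRNA10 (4.52), DDC (4.49), TAS2R13 (4.15), KCNT2 (4.05), S100A2 (4.04), TAS2R43 (3.35), BMX (2.62) and HES5 (2.40). They were negative for CLDN10 (-7.21), PCK1 (-7.04), GPR183 (-6.31), PHLDB2 (-5.95), PLAC8 (-5.76), MEGF10 (-4.84), C20H16orf54 (-4.80), BIRC3 (-4.75), CCL2 (-4.58), TPH1 (-4.46), IL1A (-4.09), IL23A (-3.58), EFNB3 (-3.41) and SYT13 (-2.41). The values of each tissue are given above for most of these genes, and no explanation was tested.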

How the results depend on the processing

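Probe sets higher in CV taste buds numbered 2133 as reported and those lower 1888. Without the animal as a replicate block they numbered 2176 and 1900, and the pairing changed the call of 6 of 337 genes (the named genes and all other list members that passed). No minimum on intensity, values under 25 raised to 25, centring of each array and a fit of all 20 samples kept both counts within 1.5 times of those reported, and ended the calls of 12, 11, 3 and 6 of the 337 genes. Leaving out 1 animal at a time gave 1785 to 2131 higher and 1708 to 1852 lower probe sets, and ended 25 calls without animal 1, 30 without animal 3, 40 without animal 4 and 47 without animal 5. The methods' t-test gave 1383 higher and 1330 lower probe sets and ended the calls of 51 of the 337 genes. After Benjamini-Hochberg adjustment 7 and 10 were left, 328 of the 337 genes lost their call and 8 list members passed, with each probe set judged on its own 4 differences. With animals 1 and 3 alone, an alternative chosen after seeing the data, 531 were higher and 503 lower, 149 list members passed, and 176 of the 337 genes lost their call. Fewer samples entered these fits.

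The comparison of CV with FG changes rested more on single animals. Its 61 higher and 142 lower probe sets became 13 to 43 and 25 to 104 when 1 animal was left out. They numbered 70 and 158 without the animal as a replicate block, 60 and 159 with low values raised, and 81 and 97 with each array centred, each of which ended 2 of the 30 named calls. None of the 337 genes, and none of the 30, changed its direction under the alternatives run on it. The cause of the shifts was not tested. The precision is limited by 4 animals, and values under 25 units carry no order.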
